A study of Danio rerio with 12 samples.

Results

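Transcript abundance in the caudal fin 3 days after amputation (3 dpa) was set against the uncut fin (0 dpa) across all expressed genes. The fin regrows after amputation through a wound epidermis and a blastema, a mass of proliferating cells beneath it. The comparison used 6 of the 12 libraries of the series, chosen by their titles: 3 from regenerating fins at 3 dpa and 3 from fin tissue at 0 dpa. All fish were adult zebrafish (Danio rerio) of the AB-Tu strain, aged 8 to 18 months, and no group carried a transgene, mutation or drug treatment by the labels. Every library holds RNA of 6 fish pooled together, so n = 3 pools per stage, and the spread behind each p-value is that between pools. The other 6 libraries, from 2 and 10 dpa, entered the fit to estimate that spread. How much of the stump was collected with the regenerate is not given in the labels.

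Building a fin again draws on several systems that are described below. Cells that divide and secrete matrix need nucleotides, amino acids, nucleotide sugars and energy from mitochondria, and they take up or export these through carriers of the SLC and ABC families. Secreted signals such as FGF, WNT, hedgehog and TGF-beta proteins act through cell surface receptors on transcription factors, which set the identity and position of cells. In bulk tissue, fewer cells of a type and less RNA per cell cannot be told apart, and each result below is a level in the whole sample.

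The 6 libraries held between 8833337 and 22843743 counts. The first principal component carried 75.8% of their variance and set all 3 dpa libraries (-91.0 to -76.7) apart from all 0 dpa libraries (69.3 to 95.5). Replicates of a stage correlated with Spearman's rho of 0.967 to 0.978 across genes, and their counts differed by more than sampling noise (chi-square over its degrees of freedom, 13.4 to 42.2). Levels are given in CPM, which are counts scaled to a common library total with TMM normalisation, in the order of replicates 1, 2 and 3. Changes are log2 changes of 3 dpa over 0 dpa with their standard error (SE) from edgeR's quasi-likelihood test. Genes are said to rise or fall where the Benjamini-Hochberg adjusted p was under 0.05.

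Of 16612 genes tested, 7331 passed (44.1%), of which 3790 rose (22.8%) and 3541 fell (21.3%). At least 8-fold changes that passed were a small share, with 314 genes higher (1.89%) and 404 lower (2.43%). In 9377 genes (56.4%) all 3 dpa libraries lay over the highest 0 dpa library or all lay under the lowest. The median log2 change over all tested genes was 0.05. With any 1 library left out, 5735 to 6959 genes passed. Most genes named below were chosen among those whose 3 dpa and 0 dpa libraries did not overlap, so a lack of overlap in them was set by the choice.

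**Figure D1:**
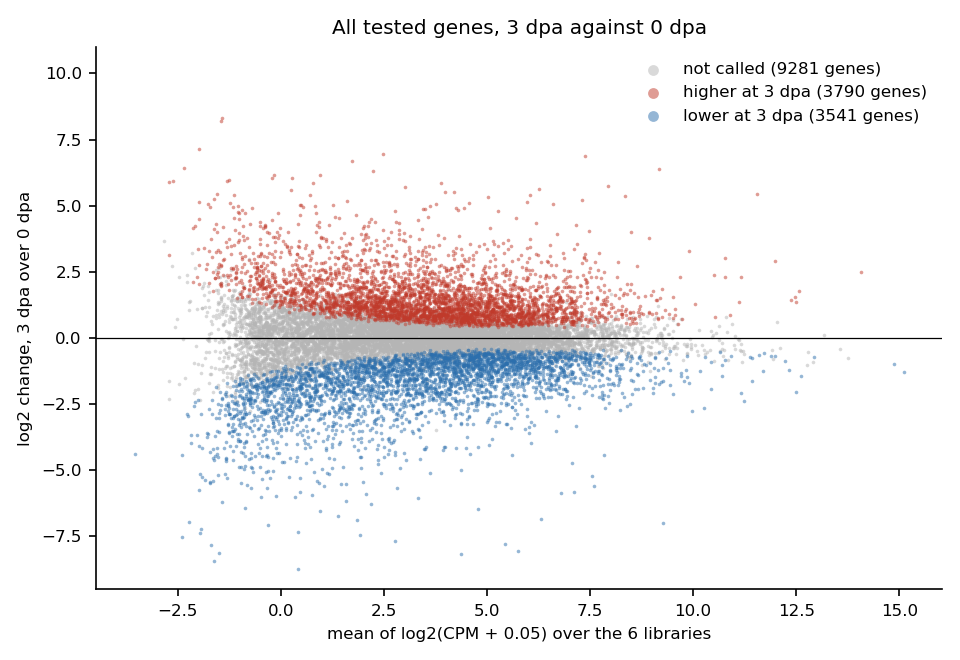
Log2 change of each of the 16612 tested genes, 3 dpa over 0 dpa (vertical axis), against its mean level over the 6 libraries as log2(CPM + 0.05) (horizontal axis). Red points are the 3790 genes that rose, blue points the 3541 that fell and grey points those that did not pass the test, and both directions appear at low and at high levels.

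Genes for membrane proteins were among the 20 largest rises. The water channel gene AQP4 (ENSDARG00000010565) had 2.76, 1.78 and 3.42 CPM at 3 dpa, against 0, 0 and 0 CPM at 0 dpa. It had no count in any uncut library, and was at least 26.1-fold higher at 3 dpa against a floor of 3 counts over the uncut group. The muscarinic acetylcholine receptor gene CHRM4 (ENSDARG00000069254) had 1.26, 0.929 and 1.6 CPM at 3 dpa, against 0, 0 and 0 CPM at 0 dpa, at least 12.7-fold higher against the same floor. cd248b (ENSDARG00000077938), named for endosialin, a surface protein of stromal cells, had 93.6, 176 and 120.0 CPM at 3 dpa, against 4.51, 1.64 and 2.33 CPM at 0 dpa. The lowest 3 dpa library was 20.8 times the highest uncut one (log2 change 5.51 ± 0.73 SE, adjusted p = 5.88e-05). The histamine H3 receptor gene hrh3 (ENSDARG00000035942) had 88.9, 155 and 119 CPM at 3 dpa, against 3.44, 0.865 and 1.86 CPM at 0 dpa. Here the lowest 3 dpa library was 25.8 times the highest uncut one.

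The 20 largest falls included genes of skin and hormone signalling. foxn1 (ENSDARG00000011879), a forkhead factor of the epidermis and thymus, had 0.23, 0.0808 and 0 CPM at 3 dpa, against 9.67, 23.1 and 13.7 CPM at 0 dpa. The melanocortin receptor gene MC5R (ENSDARG00000031348) had 0.804, 0.162 and 0.761 CPM at 3 dpa, against 34.7, 45.4 and 36.4 CPM at 0 dpa. Every 3 dpa library of these 2 genes lay far under the lowest uncut library. abi3bpa (ENSDARG00000062156), named for a matrix protein that binds ABI3, had 0.459, 0.242 and 0.304 CPM at 3 dpa, against 51.8, 43.9 and 17.6 CPM at 0 dpa, and the groups did not overlap (log2 change -6.9 ± 0.5 SE, adjusted p = 1.28e-06).

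Genes were next grouped into 78 lists by function, which held 3425 identifiers, of which 2470 passed the filter on low counts. A member that passed the filter through only 1 stage had to differ, so the counts below describe tested members and not whole families. Smaller groups named within a list, such as subunits of a complex or Hox clusters, were drawn after their values were seen. Counts are given beside the shares over all tested genes, 22.8% higher and 21.3% lower. Counts with 1 library left out are mostly given only where they moved by 1.5-fold or more. A count without them can still have moved by less.

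**Figure D2:**
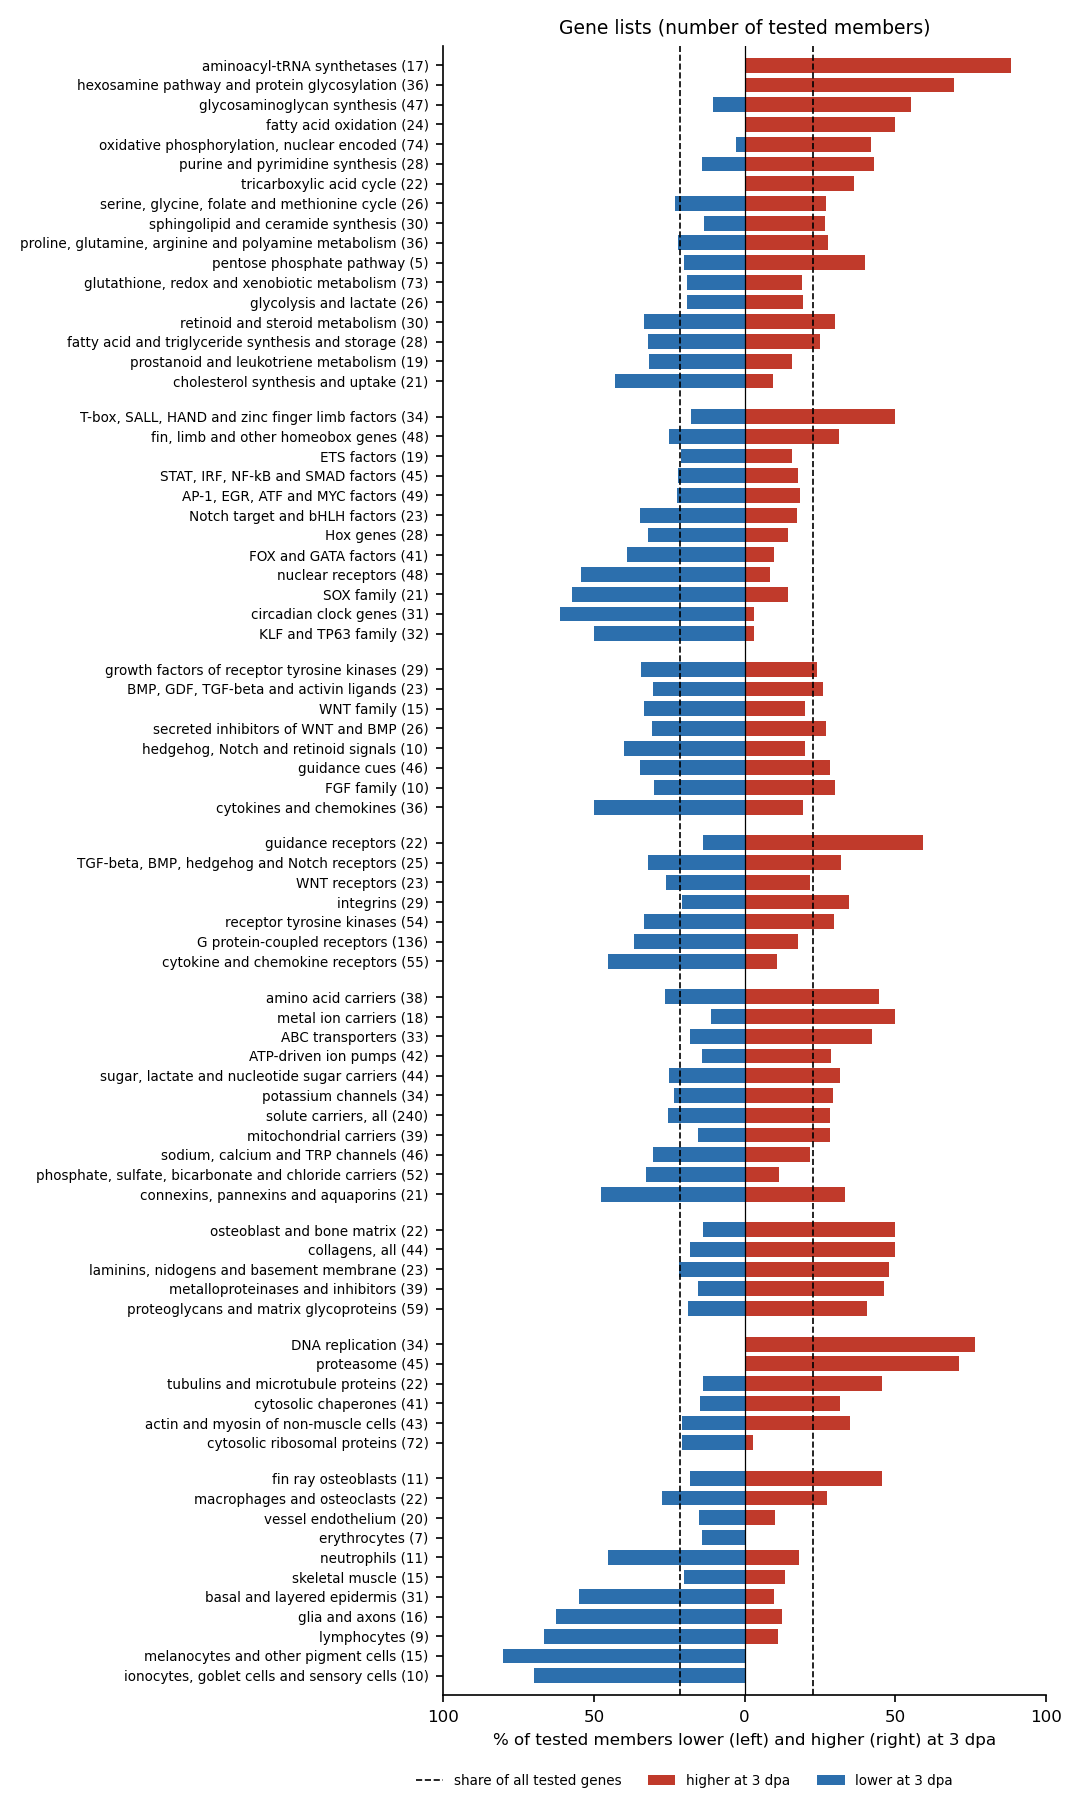
Share of the tested members of each gene list that rose (red, right) or fell (blue, left) at 3 dpa, in % on the horizontal axis, with the number of tested members in brackets. Lists are grouped by kind and ordered by median log2 change, and the dashed lines mark the shares over all tested genes, 22.8% higher and 21.3% lower. Aminoacyl-tRNA synthetases, DNA replication, the proteasome and protein glycosylation reach far past the right line with no bar to the left, and pigment cell, ionocyte and clock lists reach far past the left line.

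Genes of protein glycosylation leaned higher at 3 dpa. In the hexosamine pathway and protein glycosylation, 25 of 36 tested genes rose and 0 fell (median log2 change 0.94, against 0.05 over all genes). UGGT2 (ENSDARG00000062089), which reglucosylates misfolded glycoproteins in the endoplasmic reticulum, had 127, 142 and 132 CPM at 3 dpa, against 19.4, 12.8 and 21.2 CPM at 0 dpa. Its lowest 3 dpa library was 5.98 times the highest uncut one (log2 change 2.91 ± 0.26 SE, adjusted p = 4.44e-06). MOGS (ENSDARG00000060252), which trims the first glucose from N-glycans, had 127, 85.2 and 117 CPM at 3 dpa, against 30.1, 25 and 36.5 CPM at 0 dpa, with no overlap (log2 change 1.85 ± 0.3 SE, adjusted p = 2.61e-04). All 6 tested subunits of the oligosaccharyltransferase, which attaches N-glycans to new proteins, rose (5 or 6 with any 1 library left out). Its subunit DDOST (ENSDARG00000037318) had 271, 248 and 229 CPM at 3 dpa, against 72.6, 71.6 and 71.6 CPM at 0 dpa, and the uncut libraries were nearly equal (log2 change 1.79 ± 0.19 SE, adjusted p = 1.49e-05).

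Glycosaminoglycans are the long sugar chains of proteoglycans and of hyaluronan. Of 47 tested genes for their synthesis, 26 rose and 5 fell (median 0.81), and 3 fell without 0 dpa replicate 1. The hyaluronan synthase gene HAS2 (ENSDARG00000036987) had 61.4, 69.1 and 41.9 CPM at 3 dpa, against 4.51, 3.89 and 4.07 CPM at 0 dpa. The lowest 3 dpa library was 9.3 times the highest uncut library (log2 change 3.79 ± 0.46 SE, adjusted p = 3.33e-05). Its relative HAS1 (ENSDARG00000042983) had 11, 13.7 and 11.2 CPM at 3 dpa, against 0.738, 0.865 and 1.05 CPM at 0 dpa (log2 change 3.77 ± 0.38 SE, adjusted p = 1.03e-05). UGDH (ENSDARG00000019838), which makes the UDP-glucuronic acid that these enzymes use, had 40.9, 33.2 and 39.2 CPM at 3 dpa, against 11.1, 9.08 and 12.6 CPM at 0 dpa. The groups did not overlap (log2 change 1.79 ± 0.2 SE, adjusted p = 1.71e-05). CHSY1 (ENSDARG00000079027), which extends chondroitin chains, had 68.3, 102 and 61.7 CPM at 3 dpa, against 10.9, 9.69 and 16.8 CPM at 0 dpa (log2 change 2.64 ± 0.28 SE, adjusted p = 1.36e-05). Against this direction ext1c (ENSDARG00000035649), of the family that extends heparan sulfate, had 4.25, 3.43 and 7.91 CPM at 3 dpa, against 25.3, 20.2 and 24 CPM at 0 dpa, lower in every 3 dpa library (log2 change -2.16 ± 0.28 SE, adjusted p = 5.51e-05).

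Mitochondrial genes encoded in the nucleus leaned higher. Of 74 tested genes of oxidative phosphorylation, 31 rose and 2 fell (median 0.59). The count of rises was 20 without 0 dpa replicate 1 or 2, and the count of falls was 1 without any of 3 libraries, 3 dpa replicates 2 and 3 and 0 dpa replicate 2. By complex, 14 of 34 genes of complex I rose (7 to 9 without 3 dpa replicate 2 or 3 or 0 dpa replicate 1 or 2) and 0 fell, 5 of 8 of complex III rose (3 without 0 dpa replicate 2) and 9 of 19 of ATP synthase rose. In complex IV 3 of 13 rose and 2 fell (2 rose without 3 dpa replicate 2 or 3 or 0 dpa replicate 1 or 2, and 1 fell without 3 dpa replicate 2 or 3 or 0 dpa replicate 2). ATP5MC3 (ENSDARG00000017775), a c subunit of ATP synthase, had 329, 281 and 333 CPM at 3 dpa, against 84.4, 81.2 and 125 CPM at 0 dpa (log2 change 1.7 ± 0.24 SE, adjusted p = 1.16e-04). Its relative atp5mc1 (ENSDARG00000056008) had 146, 183 and 166 CPM at 3 dpa, against 41.1, 40.5 and 61.7 CPM at 0 dpa, and neither gene overlapped between the groups (log2 change 1.79 ± 0.22 SE, adjusted p = 3.75e-05). One of the falls in complex IV was COX6A1 (ENSDARG00000054588), with 2.07, 0.727 and 0.913 CPM at 3 dpa, against 12.5, 7.27 and 6.75 CPM at 0 dpa (log2 change -2.94 ± 0.55 SE, adjusted p = 8.06e-04). The 13 genes of the mitochondrial genome itself were listed at 0 in every library, so their transcripts were not measured here.

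In the tricarboxylic acid cycle 8 of 22 tested genes rose and 0 fell (median 0.37). IDH2 (ENSDARG00000003795), the NADP-dependent isocitrate dehydrogenase of mitochondria, had 45.1, 75 and 64.3 CPM at 3 dpa, against 8.69, 5.71 and 10.24 CPM at 0 dpa. Its lowest 3 dpa library was 4.41 times its highest uncut one (log2 change 2.91 ± 0.32 SE, adjusted p = 1.66e-05). SUCLG1 (ENSDARG00000052712), a succinyl-CoA ligase subunit, had 43.7 to 51.7 CPM at 3 dpa, against 19.5 to 27.8 CPM at 0 dpa (log2 change 1.00 ± 0.2 SE, adjusted p = 0.00144). In fatty acid oxidation 12 of 24 tested genes rose (7 without 3 dpa replicate 2) and 0 fell (median 0.60). HADHA (ENSDARG00000060594), of the trifunctional protein that carries out the last steps of each cycle, had 107, 132 and 121 CPM at 3 dpa, against 43.4, 36.8 and 44.3 CPM at 0 dpa. The groups stood apart by 2.42 times (log2 change 1.53 ± 0.17 SE, adjusted p = 2.15e-05). The carnitine palmitoyltransferases, which admit fatty acids to mitochondria, split. CPT1A (ENSDARG00000059770) had 26.9, 35.7 and 28.2 CPM at 3 dpa, against 14.8, 17.4 and 18.5 CPM at 0 dpa (log2 change 0.85 ± 0.18 SE, adjusted p = 0.0023). cpt1a2b (ENSDARG00000037943), which the list did not hold, had 32.2, 30.1 and 27.6 CPM at 3 dpa, against 57, 78.1 and 67 CPM at 0 dpa (log2 change -1.17 ± 0.2 SE, adjusted p = 4.71e-04).

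Glycolysis genes did not lean either way. Of 26 tested genes 5 rose (19.2%) and 5 fell (19.2%), with a median of 0.04. These shares were near those over all tested genes (22.8% and 21.3%), so the genes named next do not describe the list. The lactate dehydrogenase gene LDHB (ENSDARG00000019644) had 839, 702 and 625 CPM at 3 dpa, against 829, 682 and 635 CPM at 0 dpa, overlapping fully. PFKL (ENSDARG00000060504), a phosphofructokinase, had 5.51, 7.96 and 6.7 CPM at 3 dpa, against 20.7, 20.9 and 18.6 CPM at 0 dpa, lower without overlap (log2 change -1.57 ± 0.26 SE, adjusted p = 3.64e-04). pgam1a (ENSDARG00000005423), a phosphoglycerate mutase, had 16.5, 16.5 and 21.8 CPM at 3 dpa, against 4.75, 4.84 and 8.84 CPM at 0 dpa (log2 change 1.58 ± 0.27 SE, adjusted p = 4.44e-04). The glucose carrier SLC2A1 (ENSDARG00000007412) had 88.1, 85.6 and 82.4 CPM at 3 dpa, against 125, 121 and 137 CPM at 0 dpa, a small fall without overlap (log2 change -0.58 ± 0.16 SE, adjusted p = 0.00833).

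Lipid synthesis held members of both directions. Cholesterol synthesis and uptake leaned lower, where 9 of 21 tested genes fell and 2 rose (median -0.70), and 3 rose without 0 dpa replicate 3. ldlrb (ENSDARG00000026759), a receptor that takes up low-density lipoprotein, had 3.9, 3.07 and 3.42 CPM at 3 dpa, against 18.1, 11.9 and 31.6 CPM at 0 dpa. No 3 dpa library came near the uncut range (log2 change -2.57 ± 0.4 SE, adjusted p = 1.94e-04). The regulators of sterol and fatty acid synthesis were lower too. SREBF1 (ENSDARG00000067607) had 60.9, 44 and 66.2 CPM at 3 dpa, against 179, 147 and 126 CPM at 0 dpa (log2 change -1.4 ± 0.26 SE, adjusted p = 8.44e-04). srebf2 (ENSDARG00000063438) had 57.2, 61.9 and 55.7 CPM at 3 dpa, against 129.5, 88.7 and 127 CPM at 0 dpa (log2 change -0.98 ± 0.21 SE, adjusted p = 0.00229). The 2 rises were enzymes of the first part of the pathway. IDI1 (ENSDARG00000019976) had 11.4, 13.1 and 13.8 CPM at 3 dpa, against 5.98, 4.41 and 5.82 CPM at 0 dpa (log2 change 1.24 ± 0.22 SE, adjusted p = 5.86e-04). ACAT2 (ENSDARG00000007127) had 9.13 to 19 CPM at 3 dpa, against 4.24 to 5.58 CPM at 0 dpa (log2 change 1.41 ± 0.29 SE, adjusted p = 0.0016).

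Fatty acid and triglyceride genes counted 7 rises and 9 falls among 28 (median 0.02). The rises were 3 or 4 without 3 dpa replicate 2 or 3 or 0 dpa replicate 2, and the falls 6 without 0 dpa replicate 2. DGAT2 (ENSDARG00000018846), which makes triglyceride, had 0.574, 0.0808 and 0.304 CPM at 3 dpa, against 13.4, 13.1 and 7.56 CPM at 0 dpa, lower in every 3 dpa library. GPAT3 (ENSDARG00000016048), which starts glycerolipid synthesis, had 15.3, 17.8 and 22.7 CPM at 3 dpa, against 6.31, 4.32 and 6.75 CPM at 0 dpa, higher without overlap (log2 change 1.69 ± 0.25 SE, adjusted p = 1.29e-04). Its counterpart GPAM (ENSDARG00000074169) had 3.44, 3.63 and 3.04 CPM at 3 dpa, against 10.9, 7.61 and 5.47 CPM at 0 dpa, lower without overlap (log2 change -1.25 ± 0.29 SE, adjusted p = 0.00315). Among 30 sphingolipid genes 8 rose and 4 fell (2 without 3 dpa replicate 3). The ceramide synthase gene CERS2 (ENSDARG00000058992) had 79.3, 78 and 76.5 CPM at 3 dpa, against 13.2, 18.2 and 17.7 CPM at 0 dpa. The 3 dpa values were close to each other, and the lowest was 4.21 times the highest uncut value (log2 change 2.25 ± 0.19 SE, adjusted p = 2.90e-06). DEGS2 (ENSDARG00000042544), which makes the ceramides typical of skin, had 7.46, 8.24 and 5.55 CPM at 3 dpa, against 20.4, 20.6 and 25.2 CPM at 0 dpa, the opposite direction (log2 change -1.63 ± 0.27 SE, adjusted p = 3.16e-04).

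Nucleotide synthesis leaned higher, with 12 rises and 4 falls among 28 tested genes (median 0.38), and 8 rises without 3 dpa replicate 2 or 0 dpa replicate 2. UMPS (ENSDARG00000012215), the last enzyme of the new synthesis of UMP, had 8.61, 10.7 and 6.39 CPM at 3 dpa, against 2.46, 2.16 and 3.84 CPM at 0 dpa (log2 change 1.62 ± 0.32 SE, adjusted p = 0.00128). CTPS1 (ENSDARG00000030700), which makes CTP, had 8.04, 9.77 and 10.5 CPM at 3 dpa, against 4.51, 1.99 and 3.72 CPM at 0 dpa, and in both genes the groups did not overlap (log2 change 1.47 ± 0.35 SE, adjusted p = 0.00371). The 2 identifiers named IMPDH1, for the first step from IMP toward guanine nucleotides, moved in opposite directions. IMPDH1 (ENSDARG00000029524) had 161, 151 and 105 CPM at 3 dpa, against 46.6, 33.5 and 39.1 CPM at 0 dpa (log2 change 1.8 ± 0.24 SE, adjusted p = 6.74e-05). IMPDH1 (ENSDARG00000042336) had 3.67, 3.67 and 3.65 CPM at 3 dpa, against 23.7, 18.6 and 26.9 CPM at 0 dpa (log2 change -2.65 ± 0.3 SE, adjusted p = 1.96e-05). In the pentose phosphate pathway 2 of 5 tested genes rose and 1 fell. PGLS (ENSDARG00000021233), the lactonase, had 5.28, 7.11 and 5.48 CPM at 3 dpa, against 1.64, 1.73 and 1.51 CPM at 0 dpa (log2 change 1.87 ± 0.27 SE, adjusted p = 1.29e-04). The gene that fell, TKT (ENSDARG00000029689), a transketolase, had 0.0761 to 0.202 CPM at 3 dpa, against 3.12 to 3.89 CPM at 0 dpa. PGD (ENSDARG00000015343), the other gene that rose, had 60.5, 80.1 and 72.2 CPM at 3 dpa, against 46.7, 35.8 and 55.4 CPM at 0 dpa, and it did not pass without 3 dpa replicate 2 or 3 or 0 dpa replicate 1 or 2.

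Serine, glycine, folate and methionine genes had 7 rises (26.9%) and 6 falls (23.1%) among 26 (median 0.31). These shares were near those over all tested genes (22.8% and 21.3%). There were 4 rises without 0 dpa replicate 2 and 4 falls without 3 dpa replicate 2 or 3. MTHFD1L (ENSDARG00000042221), of the mitochondrial folate pathway, had 76.9, 102 and 67.7 CPM at 3 dpa, against 31.1, 16.3 and 47.6 CPM at 0 dpa (log2 change 1.38 ± 0.34 SE, adjusted p = 0.00542). The glycine cleavage gene GLDC (ENSDARG00000035120) had 20.9, 18.3 and 20.5 CPM at 3 dpa, against 78.5, 32.2 and 117 CPM at 0 dpa, lower without overlap although the uncut libraries were far apart (log2 change -1.93 ± 0.36 SE, adjusted p = 7.58e-04). Genes for S-adenosylmethionine synthesis moved apart. MAT2A (ENSDARG00000037121) had 7.12, 10.9 and 16.5 CPM at 3 dpa, against 47.1, 48.5 and 41.4 CPM at 0 dpa (log2 change -1.98 ± 0.41 SE, adjusted p = 0.00155). mat2al (ENSDARG00000063665) had 4.71, 8.04 and 5.17 CPM at 3 dpa, against 1.48, 2.34 and 2.21 CPM at 0 dpa (log2 change 1.59 ± 0.42 SE, adjusted p = 0.0079).

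Aminoacyl-tRNA synthetases, which charge tRNAs for translation, leaned higher. Of 17 tested genes 15 rose and 0 fell (median 1.24). GARS1 (ENSDARG00000059070), for glycine, had 102, 133 and 86.4 CPM at 3 dpa, against 35.1, 25.4 and 31.9 CPM at 0 dpa (log2 change 1.8 ± 0.29 SE, adjusted p = 2.42e-04). CARS1 (ENSDARG00000036164), for cysteine, had 41.5, 52.6 and 38.6 CPM at 3 dpa, against 12.9, 6.66 and 16.2 CPM at 0 dpa (log2 change 1.9 ± 0.33 SE, adjusted p = 4.53e-04). In GARS1 the lowest 3 dpa library was 2.46 times the highest uncut library, and in CARS1 2.39 times. Among 36 genes of proline, glutamine, arginine and polyamine metabolism, 10 rose and 8 fell. All 3 tested prolyl 4-hydroxylase alpha subunits, which modify collagen, rose, and P4HA1 (ENSDARG00000071082) had 53.4, 57.1 and 38.3 CPM at 3 dpa, against 5, 5.02 and 6.86 CPM at 0 dpa (log2 change 3.15 ± 0.38 SE, adjusted p = 3.38e-05). The next pair of enzymes uses arginine, and both fell. The arginase gene ARG2 (ENSDARG00000039269) had 25.7, 17.8 and 18.3 CPM at 3 dpa, against 129, 178 and 70.3 CPM at 0 dpa (log2 change -2.62 ± 0.33 SE, adjusted p = 3.87e-05). The inducible nitric oxide synthase gene NOS2 (ENSDARG00000026925) had 37.2, 9.65 and 41.9 CPM at 3 dpa, against 432, 1139.5 and 788 CPM at 0 dpa. The smallest uncut value of NOS2 was 10.3 times the largest 3 dpa value (log2 change -4.74 ± 0.68 SE, adjusted p = 1.12e-04). SAT1 (ENSDARG00000035652), which acetylates polyamines for breakdown or export, had 6.09, 6.14 and 9.66 CPM at 3 dpa, against 40.7, 49 and 44.7 CPM at 0 dpa (log2 change -2.62 ± 0.24 SE, adjusted p = 5.15e-06).

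Redox and xenobiotic genes did not lean either way, with 14 rises and 14 falls among 73 (median 0.05). The rises included 2 glutathione peroxidases of the endoplasmic reticulum. GPX8 (ENSDARG00000013302) had 22.3, 46 and 24.1 CPM at 3 dpa, against 3.52, 3.89 and 4.54 CPM at 0 dpa (log2 change 2.96 ± 0.46 SE, adjusted p = 2.02e-04). GPX7 (ENSDARG00000091511) had 16.6 to 20.8 CPM at 3 dpa, against 0.259 to 1.4 CPM at 0 dpa. The secreted peroxidase gpx3 (ENSDARG00000043342) had 0.283 to 0.989 CPM at 3 dpa, against 7.05 to 8.91 CPM at 0 dpa, the opposite direction. The glutathione transferase gsto1 (ENSDARG00000022183) had 1.15, 1.29 and 0.913 CPM at 3 dpa, against 13.2, 14.8 and 11.2 CPM at 0 dpa (log2 change -3.52 ± 0.37 SE, adjusted p = 1.30e-05).

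Retinoic acid is a vitamin A derivative that patterns growing appendages, and genes on both sides of its balance moved. Of 30 retinoid and steroid genes 9 rose (5 or 6 without 0 dpa or 3 dpa replicate 2) and 10 fell. ALDH1A2 (ENSDARG00000053493), which makes retinoic acid, had 94.3, 113 and 108 CPM at 3 dpa, against 14, 10.03 and 11.9 CPM at 0 dpa. The lowest 3 dpa library was 6.73 times the highest uncut one (log2 change 3.13 ± 0.23 SE, adjusted p = 1.51e-06). CYP26C1 (ENSDARG00000056029), which degrades it, had 13, 15.7 and 21 CPM at 3 dpa, against 5.41, 6.92 and 5.12 CPM at 0 dpa (log2 change 1.51 ± 0.4 SE, adjusted p = 0.0075). The cellular binding proteins split. CRABP2 (ENSDARG00000030449) had 13.3, 18.7 and 8.67 CPM at 3 dpa, against 1.64, 1.56 and 2.09 CPM at 0 dpa (log2 change 2.95 ± 0.39 SE, adjusted p = 5.62e-05). CRABP1 (ENSDARG00000035904) had 1.84, 1.53 and 1.67 CPM at 3 dpa, against 5.98, 6.31 and 9.77 CPM at 0 dpa (log2 change -2.13 ± 0.29 SE, adjusted p = 7.61e-05). BCO2 (ENSDARG00000055722), which cleaves carotenoids, had 10.22, 4.89 and 7.23 CPM at 3 dpa, against 38.1, 51.5 and 32.5 CPM at 0 dpa, lower without overlap (log2 change -2.48 ± 0.4 SE, adjusted p = 2.54e-04).

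Genes for lipid mediators of the arachidonic acid family summed to less at 3 dpa, and most of the sum at 0 dpa came from 1 gene. The 25 identifiers of this list held 312 to 350.3 CPM at 3 dpa, against 8063 to 8826 CPM at 0 dpa. The prostaglandin D synthase gene ptgdsb.1 (ENSDARG00000027088) had 98.2, 29.3 and 47.9 CPM at 3 dpa, against 7718, 7308 and 7307 CPM at 0 dpa. It made up 9.41% to 28.0% of the sum at 3 dpa, against 87.4% to 90.6% at 0 dpa. Without it the sums were 252 to 292 CPM at 3 dpa, against 757 to 1108 CPM at 0 dpa. Its relative ptgdsb.2 (ENSDARG00000071626) made up 0.448% to 1.64% of the full sum at 3 dpa, against 6.56% to 9.16% at 0 dpa. The lower sum thus describes these genes and not the family as a whole. Of 19 tested members 3 rose (2 without 3 dpa replicate 2 or 0 dpa replicate 1 or 3) and 6 fell. alox12 (ENSDARG00000069463), a lipoxygenase, had 5.51, 3.55 and 3.35 CPM at 3 dpa, against 32.2, 37.9 and 25.4 CPM at 0 dpa (log2 change -2.97 ± 0.35 SE, adjusted p = 2.61e-05). LTA4H (ENSDARG00000006029), which makes leukotriene B4, had 38.4, 37.2 and 40.7 CPM at 3 dpa, against 12.1, 8.48 and 15.2 CPM at 0 dpa, higher without overlap (log2 change 1.71 ± 0.25 SE, adjusted p = 1.46e-04).

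**Figure D3:**
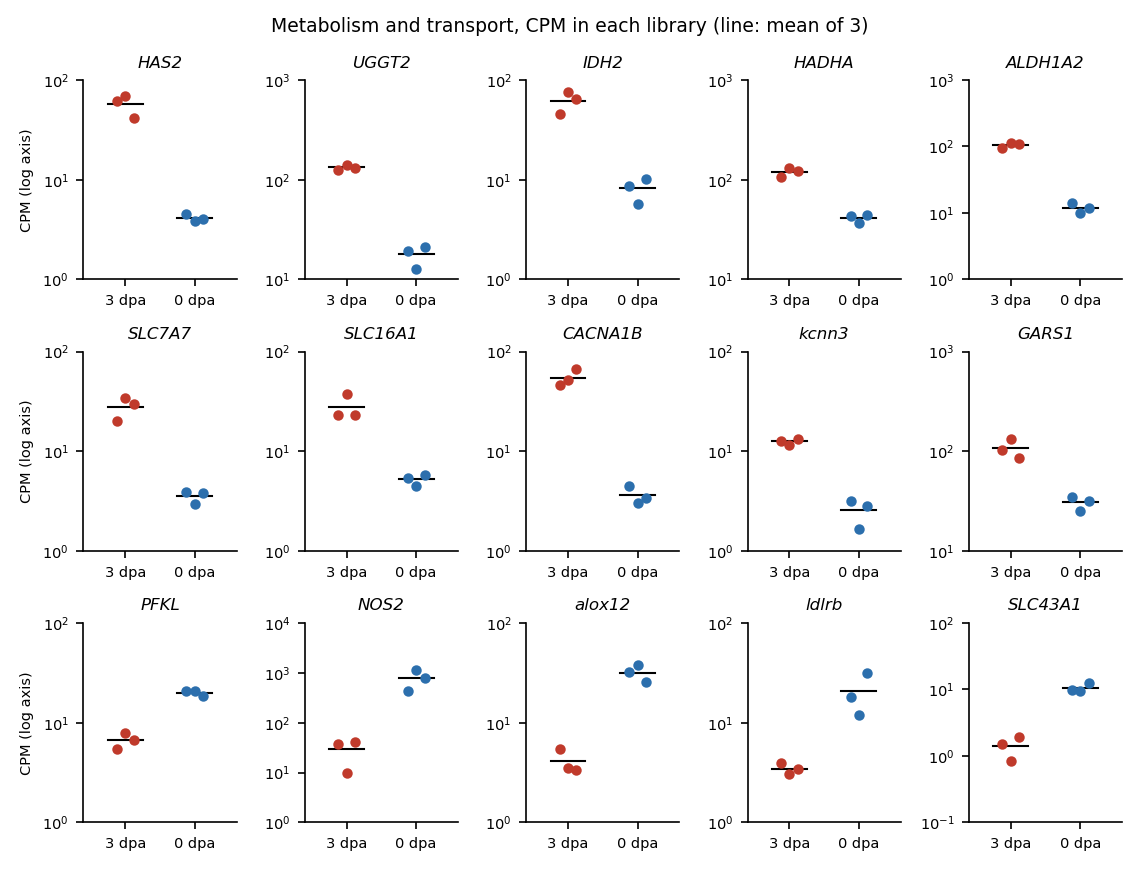
CPM on log axes for 15 genes of metabolism and transport in each 3 dpa library (red, left) and 0 dpa library (blue, right) of replicates 1, 2 and 3, with a line at the mean of 3. The upper 2 rows show genes that rose and the bottom row genes that fell. In none of the 15 do the groups overlap, which was a condition of their choice.

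Transcription factor families differed in direction. Factors of the T-box, SALL, HAND and related zinc finger families, many of them active in limb and fin buds, had 17 rises and 6 falls among 34 (median 0.87). The falls were 4 without 3 dpa replicate 2 or 0 dpa replicate 2. Of the 6 SALL genes 5 rose. SALL4 (ENSDARG00000044485), also known for its part in stem cells, had 31.7, 40.2 and 34.4 CPM at 3 dpa, against 5.08, 2.85 and 2.56 CPM at 0 dpa. Its lowest 3 dpa value was 6.24 times its highest uncut one (log2 change 3.32 ± 0.4 SE, adjusted p = 3.36e-05). sall2 (ENSDARG00000075116) had 46.5, 45.6 and 44.7 CPM at 3 dpa, against 14.3, 13.3 and 9.31 CPM at 0 dpa (log2 change 1.89 ± 0.21 SE, adjusted p = 1.98e-05). SP5 (ENSDARG00000076571), a target and partner of WNT signalling, had 8.73, 8.2 and 7.38 CPM at 3 dpa, against 0.656, 0.692 and 0.582 CPM at 0 dpa (log2 change 3.63 ± 0.47 SE, adjusted p = 5.21e-05). snai1b (ENSDARG00000046019), a repressor of epithelial genes, had 6.89, 3.88 and 5.94 CPM at 3 dpa, against 0.656, 0.692 and 0.931 CPM at 0 dpa (log2 change 2.86 ± 0.41 SE, adjusted p = 1.03e-04). tbx6 (ENSDARG00000011785) had 1.03, 0.969 and 1.14 CPM at 3 dpa, against 5.08, 6.57 and 2.33 CPM at 0 dpa, lower without overlap (log2 change -2.16 ± 0.43 SE, adjusted p = 0.00121).

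Among 48 other homeobox genes 15 rose and 12 fell (median 0.14). There were 10 rises without 3 dpa replicate 3, and 4 to 8 falls without 3 dpa replicate 2 or 3 or 0 dpa replicate 1 or 2. msx1b (ENSDARG00000008886), a blastema factor in fins, had 249.9, 189.5 and 239 CPM at 3 dpa, against 64.3, 58.2 and 58.5 CPM at 0 dpa (log2 change 1.91 ± 0.23 SE, adjusted p = 3.01e-05). LHX2 (ENSDARG00000031222), a LIM homeobox gene of limb buds, had 25.6, 31.3 and 22.8 CPM at 3 dpa, against 7.13, 3.55 and 4.3 CPM at 0 dpa (log2 change 2.4 ± 0.3 SE, adjusted p = 3.94e-05). PRRX1 (ENSDARG00000042027), a mesenchymal factor, had 77.4, 88.8 and 119 CPM at 3 dpa, against 25.9, 19.5 and 31.8 CPM at 0 dpa (log2 change 1.89 ± 0.32 SE, adjusted p = 3.99e-04). The lowest 3 dpa library was 2.95 times the highest uncut library for msx1b, 3.19 times for LHX2 and 2.44 times for PRRX1.

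Hox genes give cells their position along body and limb axes, and their 4 rises and 9 falls among 28 tested genes differed by cluster. In cluster A 4 of 5 rose and 0 fell, in B 2 of 7 fell, in C 7 of 10 fell and 0 rose, and in D 0 of 6 passed (1 fell without 0 dpa replicate 3). These counts depended on single libraries: the rises in A were 2 without 3 dpa replicate 1, 3 dpa replicate 3 or 0 dpa replicate 1, and the falls in C were 3 to 4 without 3 dpa replicate 1 or 2 or 0 dpa replicate 2. hoxa13b (ENSDARG00000036254), of the most distal group, had 166, 191 and 215 CPM at 3 dpa, against 92.7, 98 and 98.9 CPM at 0 dpa (log2 change 0.98 ± 0.26 SE, adjusted p = 0.00842). hoxa9b (ENSDARG00000056819) had 11.6, 12.7 and 16.4 CPM at 3 dpa, against 5.08, 5.97 and 6.28 CPM at 0 dpa (log2 change 1.24 ± 0.32 SE, adjusted p = 0.00692). In both the groups stood apart. HOXC11 (ENSDARG00000070351) had 19.9, 13.6 and 27.8 CPM at 3 dpa, against 63.7, 87.4 and 64.8 CPM at 0 dpa, lower in every library (log2 change -1.82 ± 0.26 SE, adjusted p = 9.90e-05). HOXC13 (ENSDARG00000070353), of the same cluster, had 97.5, 89.3 and 129 CPM at 3 dpa, against 116, 97.9 and 100.2 CPM at 0 dpa, overlapping and not passing.

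SOX factors, which act in neural crest, glia and cartilage, fell in 12 of 21 and rose in 3 (median -0.98). The 3 rises belonged to the SOXC group. SOX4 (ENSDARG00000004588) had 250.3, 207 and 277 CPM at 3 dpa, against 69.4, 49.6 and 73.4 CPM at 0 dpa (log2 change 1.93 ± 0.25 SE, adjusted p = 4.68e-05). SOX11 (ENSDARG00000077811) had 35.1, 33.1 and 43.8 CPM at 3 dpa, against 8.44, 7.53 and 15.1 CPM at 0 dpa (log2 change 1.86 ± 0.3 SE, adjusted p = 2.74e-04). SOX11 (ENSDARG00000095743) had 3.22, 5.57 and 3.73 CPM at 3 dpa, against 1.48, 0.259 and 1.16 CPM at 0 dpa (log2 change 2.13 ± 0.55 SE, adjusted p = 0.00646). The groups did not overlap in any of them. sox19b (ENSDARG00000040266) had 0.804, 1.17 and 2.43 CPM at 3 dpa, against 18, 13.6 and 21.8 CPM at 0 dpa, the opposite direction (log2 change -3.57 ± 0.52 SE, adjusted p = 1.22e-04). Beside these values, 10 of 16 tested markers of glia and axons and 12 of 15 of pigment cells fell, and their part in the SOX result was not tested.

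Krüppel-like and p63 family factors, several of which act in epidermal differentiation, fell in 16 of 32 and rose in 1 (median -1.31). KLF4 (ENSDARG00000079922) had 14.6, 10.9 and 18 CPM at 3 dpa, against 181, 104 and 134 CPM at 0 dpa. Its lowest uncut library was 5.79 times its highest 3 dpa library (log2 change -3.27 ± 0.46 SE, adjusted p = 9.44e-05). klf6b (ENSDARG00000038561) had 0.344, 0.646 and 0.913 CPM at 3 dpa, against 5.66, 12.1 and 9.77 CPM at 0 dpa (log2 change -3.79 ± 0.5 SE, adjusted p = 5.88e-05). The 1 rise was that of KLF12 (ENSDARG00000015312), with 50.2, 44.3 and 46.6 CPM at 3 dpa, against 17.8, 17.8 and 13.5 CPM at 0 dpa (log2 change 1.52 ± 0.23 SE, adjusted p = 1.48e-04). Beside these values, 17 of 31 tested markers of epidermis fell and 3 rose, and the summed level of the epidermal list was 43714 to 46705 CPM at 3 dpa, against 86208 to 111049 CPM at 0 dpa. The part of that difference in the KLF result was not tested.

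Immediate early and MYC factors held 9 rises and 11 falls among 49 (6 or 7 falls without 0 dpa or 3 dpa replicate 2). FOSL2 (ENSDARG00000040623), an AP-1 subunit, had 391, 310.4 and 392 CPM at 3 dpa, against 99.9, 61.6 and 78.5 CPM at 0 dpa (log2 change 2.19 ± 0.3 SE, adjusted p = 8.94e-05). MAF (ENSDARG00000015890) had 183, 251 and 222 CPM at 3 dpa, against 25.5, 20.4 and 27.7 CPM at 0 dpa, and the lowest 3 dpa library was 6.61 times the highest uncut one (log2 change 3.16 ± 0.22 SE, adjusted p = 1.28e-06). Members of the MYC family moved apart. MYC (ENSDARG00000045695) had 57.6, 71.1 and 54.6 CPM at 3 dpa, against 13, 13.5 and 17.5 CPM at 0 dpa (log2 change 2.06 ± 0.26 SE, adjusted p = 4.76e-05). MYCL (ENSDARG00000034956) had 12.2, 18.3 and 16.6 CPM at 3 dpa, against 101, 136 and 80.7 CPM at 0 dpa (log2 change -2.75 ± 0.25 SE, adjusted p = 4.44e-06).

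Of 48 nuclear receptors 26 fell and 4 rose (2 without 0 dpa replicate 3), with a median of -0.84. raraa (ENSDARG00000056783), a retinoic acid receptor, had 1.26, 0.969 and 1.22 CPM at 3 dpa, against 8.53, 8.74 and 5.7 CPM at 0 dpa (log2 change -2.75 ± 0.34 SE, adjusted p = 3.48e-05). nr2f5 (ENSDARG00000033172) had 0.23, 0.202 and 0.533 CPM at 3 dpa, against 3.12, 1.82 and 2.68 CPM at 0 dpa (log2 change -2.99 ± 0.5 SE, adjusted p = 3.63e-04). The lowest uncut library was 4.51 times the highest 3 dpa library for raraa and 3.41 times for nr2f5. The estrogen receptor gene ESR2 (ENSDARG00000016454) was among the rises, with 1.61, 1.78 and 2.05 CPM at 3 dpa, against 0.492, 0.259 and 0.465 CPM at 0 dpa (log2 change 2.15 ± 0.47 SE, adjusted p = 0.00243).

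The nuclear receptors overlap with the circadian clock, in which 19 of 31 tested genes fell and 1 rose (median -1.3). With any 1 library left out 18 to 24 fell, and 2 rose without 0 dpa replicate 2. hlfa (ENSDARG00000074752), a clock output factor, had 32, 22.8 and 36.8 CPM at 3 dpa, against 356, 383 and 299.8 CPM at 0 dpa (log2 change -3.51 ± 0.29 SE, adjusted p = 2.90e-06). CRY1 (ENSDARG00000045768), a cryptochrome that represses the clock, had 50.1, 54.8 and 49.9 CPM at 3 dpa, against 196, 217 and 171 CPM at 0 dpa (log2 change -1.92 ± 0.21 SE, adjusted p = 1.68e-05). PER2 (ENSDARG00000034503) had 47, 35.4 and 18.1 CPM at 3 dpa, against 116, 116 and 104 CPM at 0 dpa (log2 change -1.75 ± 0.29 SE, adjusted p = 3.31e-04). CLOCK (ENSDARG00000011703) had 47, 29.6 and 29.3 CPM at 3 dpa, against 116, 86.5 and 96.1 CPM at 0 dpa, all lower without overlap (log2 change -1.5 ± 0.37 SE, adjusted p = 0.00494). The 1 rise was bmal2 (ENSDARG00000041381), with 55.1, 57.5 and 46.1 CPM at 3 dpa, against 22, 8.56 and 18.3 CPM at 0 dpa (log2 change 1.7 ± 0.31 SE, adjusted p = 6.83e-04).

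Replicates of a stage differed from each other in clock genes. NR1D1 (ENSDARG00000033160), a clock repressor with a steep daily rhythm, had 1.95, 1.78 and 35.6 CPM at 3 dpa, against 8.12, 58.1 and 10.7 CPM at 0 dpa. Replicate 3 stood far over the others at 3 dpa, as replicate 2 did at 0 dpa. dbpb (ENSDARG00000057652) had 8.96, 4.77 and 66.8 CPM at 3 dpa, against 37.4, 78.9 and 38.5 CPM at 0 dpa, and cry3b (ENSDARG00000091131) had 60.5, 50.3 and 6.85 CPM at 3 dpa, against 158, 88.9 and 119 CPM at 0 dpa. Replicate 3 was again the odd 3 dpa library, high for dbpb and low for cry3b. The labels give no time of day for collection, so time of day and stage cannot be told apart in the clock genes.

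Forkhead and GATA factors fell in 16 of 41 and rose in 4 (median -0.81). FOXM1 (ENSDARG00000003200), which drives genes of mitosis, had 59.9, 36 and 36.8 CPM at 3 dpa, against 6.97, 5.54 and 8.96 CPM at 0 dpa (log2 change 2.63 ± 0.3 SE, adjusted p = 2.28e-05). foxa3 (ENSDARG00000012788) had 1.61, 0.646 and 1.83 CPM at 3 dpa, against 13.7, 16.3 and 6.05 CPM at 0 dpa (log2 change -3.21 ± 0.51 SE, adjusted p = 2.52e-04). gata2b (ENSDARG00000009094) had 2.87, 1.98 and 3.65 CPM at 3 dpa, against 21.5, 26.6 and 15.4 CPM at 0 dpa (log2 change -2.92 ± 0.41 SE, adjusted p = 1.01e-04). Of these 3 genes FOXM1 was higher and the others lower, each without overlap. Among ETS factors 3 of 19 rose and 4 fell, and all 3 rises were in the group that FGF signalling induces. ETV4 (ENSDARG00000018303) had 529, 372 and 541 CPM at 3 dpa, against 108, 98.9 and 91 CPM at 0 dpa (log2 change 2.28 ± 0.32 SE, adjusted p = 1.03e-04). etv5b (ENSDARG00000044511) had 134, 140.1 and 138 CPM at 3 dpa, against 25.4, 21.9 and 42.5 CPM at 0 dpa (log2 change 2.2 ± 0.24 SE, adjusted p = 1.80e-05). etv5a (ENSDARG00000069763) had 93, 89.6 and 106 CPM at 3 dpa, against 53.8, 55.4 and 50.7 CPM at 0 dpa (log2 change 0.85 ± 0.17 SE, adjusted p = 0.00118), and none of the 3 overlapped. In a list of Notch targets, bHLH factors and WNT effectors, 4 of 23 genes rose and 8 fell (5 without 3 dpa replicate 2). LEF1 (ENSDARG00000031894) had 426, 244 and 399 CPM at 3 dpa, against 41.1, 28.5 and 46.4 CPM at 0 dpa (log2 change 3.2 ± 0.29 SE, adjusted p = 4.11e-06). TCF7 (ENSDARG00000038672) had 264, 194 and 275 CPM at 3 dpa, against 30.7, 34.8 and 34 CPM at 0 dpa (log2 change 2.88 ± 0.29 SE, adjusted p = 9.80e-06). In LEF1 the lowest 3 dpa library was 5.25 times the highest uncut one, and in TCF7 5.59 times. Of 45 STAT, IRF, NF-kB and SMAD factors 8 rose and 10 fell (6 without 0 dpa replicate 2), and CBFB (ENSDARG00000040917), the partner of RUNX factors, had 126, 108 and 111 CPM at 3 dpa, against 51.4, 46.9 and 45.8 CPM at 0 dpa (log2 change 1.25 ± 0.18 SE, adjusted p = 9.82e-05).

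Secreted signals were mixed within each family. Among 10 FGF genes 3 rose and 3 fell. FGF10 (ENSDARG00000030932), a mesenchymal signal of limb buds, had 12.2, 21.8 and 16.7 CPM at 3 dpa, against 5.9, 4.76 and 5.58 CPM at 0 dpa (log2 change 1.65 ± 0.31 SE, adjusted p = 8.67e-04). FGF18 (ENSDARG00000088048) had 1.84, 1.45 and 0.913 CPM at 3 dpa, against 4.92, 5.02 and 5.58 CPM at 0 dpa, lower without overlap (log2 change -1.89 ± 0.34 SE, adjusted p = 5.57e-04). Among 15 WNT genes 3 rose and 5 fell. WNT10A (ENSDARG00000017155) had 19.1, 20.1 and 16.6 CPM at 3 dpa, against 6.89, 4.15 and 5.35 CPM at 0 dpa (log2 change 1.76 ± 0.23 SE, adjusted p = 5.93e-05). WNT7A (ENSDARG00000002483) had 3.79, 5.65 and 6.01 CPM at 3 dpa, against 22, 27.8 and 16.6 CPM at 0 dpa (log2 change -2.09 ± 0.27 SE, adjusted p = 4.68e-05). The first was higher and the second lower in every library.

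In the TGF-beta superfamily 6 of 23 ligands rose and 7 fell (median 0.05). Both identifiers of INHBA, the activin subunit, rose. INHBA (ENSDARG00000024759) had 59.6, 40.1 and 51.2 CPM at 3 dpa, against 11.2, 5.19 and 7.56 CPM at 0 dpa (log2 change 2.65 ± 0.3 SE, adjusted p = 2.12e-05). INHBA (ENSDARG00000012671) had 59.8, 53.9 and 57.1 CPM at 3 dpa, against 14, 13.1 and 20.8 CPM at 0 dpa (log2 change 1.84 ± 0.27 SE, adjusted p = 1.33e-04). TGFB2 (ENSDARG00000027087) had 17.2, 39.7 and 19.8 CPM at 3 dpa, against 6.48, 5.28 and 4.3 CPM at 0 dpa (log2 change 2.26 ± 0.32 SE, adjusted p = 1.11e-04). mstnb (ENSDARG00000069133), a myostatin gene, had 6.54, 2.1 and 5.78 CPM at 3 dpa, against 66, 87.5 and 94.1 CPM at 0 dpa, and its lowest uncut library was 10.1 times its highest 3 dpa one (log2 change -4.15 ± 0.52 SE, adjusted p = 3.88e-05). BMP3 (ENSDARG00000060526) had 13.2, 8.68 and 16 CPM at 3 dpa, against 63.9, 52 and 71 CPM at 0 dpa (log2 change -2.31 ± 0.33 SE, adjusted p = 1.02e-04). Hedgehog and Notch ligands gave 2 rises and 4 falls among 10. Sonic hedgehog, SHH (ENSDARG00000068567), had 17.2, 23.7 and 21.2 CPM at 3 dpa, against 1.31, 0.865 and 2.91 CPM at 0 dpa, and the lowest 3 dpa library was 5.92 times the highest uncut one. Of the Notch ligands jag1a (ENSDARG00000030289) had 51.6, 67.6 and 47.7 CPM at 3 dpa, against 17.9, 15.8 and 12.3 CPM at 0 dpa (log2 change 1.86 ± 0.25 SE, adjusted p = 6.56e-05). Its duplicate jag1b (ENSDARG00000013168) had 66.1, 67.8 and 58.9 CPM at 3 dpa, against 198, 172 and 154 CPM at 0 dpa (log2 change -1.44 ± 0.19 SE, adjusted p = 5.70e-05).

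Ligands of receptor tyrosine kinases gave 7 rises and 10 falls among 29. Midkine, MDK (ENSDARG00000036036), a heparin-binding growth factor, had 1595, 1958 and 2017 CPM at 3 dpa, against 121, 89.96 and 201 CPM at 0 dpa. Its lowest 3 dpa library was 7.95 times the highest uncut one (log2 change 3.76 ± 0.33 SE, adjusted p = 3.49e-06). igf2b (ENSDARG00000033307) had 98.2, 66.8 and 60.3 CPM at 3 dpa, against 19.3, 18.6 and 16.5 CPM at 0 dpa (log2 change 2.05 ± 0.24 SE, adjusted p = 2.68e-05). IGF1 (ENSDARG00000094132) had 1.49, 0.808 and 1.14 CPM at 3 dpa, against 6.48, 3.72 and 9.31 CPM at 0 dpa, the opposite direction (log2 change -2.54 ± 0.56 SE, adjusted p = 0.00249). kitlga (ENSDARG00000070917), the ligand of KIT that pigment cells need, had 22.6, 10.8 and 25 CPM at 3 dpa, against 92.7, 119.6 and 62.6 CPM at 0 dpa (log2 change -2.24 ± 0.37 SE, adjusted p = 3.02e-04).

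Cytokines and chemokines leaned lower, with 18 falls and 7 rises among 36 (median -0.78). il15 (ENSDARG00000052361) had 0.115, 0.121 and 0.304 CPM at 3 dpa, against 5, 4.07 and 5.35 CPM at 0 dpa (log2 change -4.7 ± 0.49 SE, adjusted p = 1.23e-05). ccl25b (ENSDARG00000070873) had 2.53, 1.05 and 3.27 CPM at 3 dpa, against 69.9, 44.7 and 41.8 CPM at 0 dpa, and its lowest uncut library was 12.8 times its highest 3 dpa one (log2 change -4.57 ± 0.35 SE, adjusted p = 1.77e-06). tnfsf11 (ENSDARG00000068141), which codes for the osteoclast factor RANKL, had 3.67, 6.1 and 7.76 CPM at 3 dpa, against 1.97, 3.03 and 1.16 CPM at 0 dpa, higher without overlap (log2 change 1.5 ± 0.38 SE, adjusted p = 0.00636).

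Secreted inhibitors of WNT and BMP signals moved in both directions, 7 higher and 8 lower among 26. WIF1 (ENSDARG00000005541) had 8.04, 4.52 and 7.61 CPM at 3 dpa, against 132, 107 and 109 CPM at 0 dpa (log2 change -4.13 ± 0.33 SE, adjusted p = 2.37e-06). dkk2 (ENSDARG00000076420) had 2.53, 0.727 and 1.6 CPM at 3 dpa, against 23.6, 27.5 and 12.3 CPM at 0 dpa (log2 change -3.82 ± 0.51 SE, adjusted p = 6.13e-05). Both were lower in every 3 dpa library. dkk1b (ENSDARG00000045219) had 6.54, 5.65 and 4.41 CPM at 3 dpa, against 0.984, 0.865 and 0.814 CPM at 0 dpa (log2 change 2.62 ± 0.49 SE, adjusted p = 7.61e-04). DKK3 (ENSDARG00000070683) had 601, 422 and 494 CPM at 3 dpa, against 57.6, 27.8 and 98.9 CPM at 0 dpa (log2 change 3.04 ± 0.38 SE, adjusted p = 4.06e-05). These 2 were higher in every 3 dpa library.

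Axon guidance molecules steer growing nerves and vessels. Among their cues 13 of 46 rose and 16 fell, but among their receptors 13 of 22 rose and 3 fell (median 1.12). UNC5B (ENSDARG00000033327), a netrin receptor, had 91.4, 161 and 124 CPM at 3 dpa, against 12.3, 11.1 and 8.61 CPM at 0 dpa. Its lowest 3 dpa library was 7.43 times its highest uncut one (log2 change 3.55 ± 0.27 SE, adjusted p = 1.73e-06). ROBO3 (ENSDARG00000005645), of the Slit receptor family, had 144, 172 and 157 CPM at 3 dpa, against 15.3, 13.1 and 14.7 CPM at 0 dpa (log2 change 3.46 ± 0.46 SE, adjusted p = 5.87e-05). NRP2 (ENSDARG00000096546), a neuropilin, had 126, 126 and 136 CPM at 3 dpa, against 28.9, 20.9 and 30.5 CPM at 0 dpa (log2 change 2.27 ± 0.27 SE, adjusted p = 3.17e-05). PLXNA2 (ENSDARG00000060372), a semaphorin receptor, had 66.6, 62.7 and 63.2 CPM at 3 dpa, against 14.7, 12.6 and 17.2 CPM at 0 dpa (log2 change 2.11 ± 0.18 SE, adjusted p = 3.06e-06). UNC5D (ENSDARG00000061541) had 0.344, 0.565 and 0.304 CPM at 3 dpa, against 5.49, 2.94 and 6.28 CPM at 0 dpa, against that direction (log2 change -3.48 ± 0.54 SE, adjusted p = 1.94e-04). Among the cues SEMA5B (ENSDARG00000061471) had 22.4, 30.9 and 40.3 CPM at 3 dpa, against 6.89, 7.7 and 5.12 CPM at 0 dpa (log2 change 2.24 ± 0.39 SE, adjusted p = 4.32e-04). sema3h (ENSDARG00000042616) had 0.344, 0.242 and 0.38 CPM at 3 dpa, against 7.71, 5.8 and 9.54 CPM at 0 dpa (log2 change -4.6 ± 0.42 SE, adjusted p = 4.62e-06).

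Receptor tyrosine kinases gave 16 rises and 18 falls among 54. KIT (ENSDARG00000043317), a receptor of pigment cells, had 14.6, 12 and 17.5 CPM at 3 dpa, against 154, 187 and 131 CPM at 0 dpa. The lowest uncut library was 7.46 times the highest 3 dpa one (log2 change -3.43 ± 0.26 SE, adjusted p = 1.73e-06). Markers of pigment cells also fell, in 12 of 15, and their part in the KIT result was not tested. RET (ENSDARG00000055305) had 33.9, 31 and 47.1 CPM at 3 dpa, against 7.13, 4.5 and 5.24 CPM at 0 dpa (log2 change 2.72 ± 0.4 SE, adjusted p = 1.30e-04). epha7 (ENSDARG00000004635) had 102, 104 and 117 CPM at 3 dpa, against 25.2, 26.3 and 20.7 CPM at 0 dpa (log2 change 2.16 ± 0.25 SE, adjusted p = 2.29e-05). Both were higher without overlap. Of the FGF receptors fgfr4 (ENSDARG00000069105) had 24.5, 15 and 28.5 CPM at 3 dpa, against 92.1, 74.1 and 84.1 CPM at 0 dpa (log2 change -1.89 ± 0.28 SE, adjusted p = 1.30e-04). FGFR3 (ENSDARG00000004782) had 31.7, 51.5 and 54.1 CPM at 3 dpa, against 89.7, 96.6 and 95.9 CPM at 0 dpa (log2 change -1.04 ± 0.21 SE, adjusted p = 0.00156), and both were lower without overlap. PDGFRA (ENSDARG00000070494) had 53.7, 42.1 and 47.9 CPM at 3 dpa, against 19.5, 16.7 and 18 CPM at 0 dpa (log2 change 1.4 ± 0.22 SE, adjusted p = 2.00e-04). Both IGF1R identifiers rose by less than 2-fold, with 79.8 to 95.6 CPM at 3 dpa, against 48.2 to 63.1 CPM at 0 dpa for IGF1R (ENSDARG00000027423) and 35.1 to 40.7 CPM at 3 dpa, against 16.4 to 23.9 CPM at 0 dpa for IGF1R (ENSDARG00000034434).

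Receptors of WNT, TGF-beta, hedgehog and Notch signals held both directions in like numbers. Among 23 WNT receptors 5 rose (21.7%) and 6 fell (26.1%), near the shares over all tested genes (22.8% and 21.3%). FZD9 (ENSDARG00000014673) had 28.9, 32.7 and 32.9 CPM at 3 dpa, against 5.57, 5.45 and 7.68 CPM at 0 dpa (log2 change 2.34 ± 0.4 SE, adjusted p = 3.98e-04). In the other direction FZD3 (ENSDARG00000021664) had 15, 12.1 and 19.6 CPM at 3 dpa, against 44.2, 56.5 and 49.9 CPM at 0 dpa (log2 change -1.69 ± 0.31 SE, adjusted p = 6.27e-04). Of 25 others 8 rose (5 without 3 dpa replicate 2 or 0 dpa replicate 2 or 3) and 8 fell. NOTCH3 (ENSDARG00000052139) had 275, 293 and 299 CPM at 3 dpa, against 759.6, 698 and 589 CPM at 0 dpa (log2 change -1.24 ± 0.23 SE, adjusted p = 6.69e-04). TGFBR2 (ENSDARG00000034541) had 63.5, 55.6 and 61.4 CPM at 3 dpa, against 243, 256 and 219 CPM at 0 dpa, a fall without overlap (log2 change -1.99 ± 0.21 SE, adjusted p = 1.19e-05). tgfbr2l (ENSDARG00000055136) had 18.3, 25 and 24.9 CPM at 3 dpa, against 8.69, 5.19 and 7.21 CPM at 0 dpa, a rise without overlap (log2 change 1.69 ± 0.25 SE, adjusted p = 1.25e-04).

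Cytokine receptors fell in 25 of 55 and rose in 6 (median -0.39), with 15 or 16 falls without 0 dpa replicate 2 or 1 and 3 or 4 rises without 3 dpa replicate 1 or 2 or 0 dpa replicate 1 or 3. il20ra (ENSDARG00000032571) had 7.92, 6.18 and 8.75 CPM at 3 dpa, against 45.7, 50.8 and 45.3 CPM at 0 dpa (log2 change -2.64 ± 0.27 SE, adjusted p = 1.25e-05). tnfrsf9a (ENSDARG00000060498) had 5.05, 6.46 and 3.8 CPM at 3 dpa, against 0.574, 0.692 and 0.349 CPM at 0 dpa, the opposite direction (log2 change 3.2 ± 0.37 SE, adjusted p = 2.21e-05). Integrins, the matrix receptors, rose in 10 of 29 and fell in 6. ITGA5 (ENSDARG00000006353), a fibronectin receptor chain, had 145, 164 and 121 CPM at 3 dpa, against 42.1, 22.9 and 21.9 CPM at 0 dpa (log2 change 2.3 ± 0.26 SE, adjusted p = 1.76e-05). ITGA9 (ENSDARG00000032435) had 11.5, 13.3 and 14.3 CPM at 3 dpa, against 1.72, 0.951 and 1.05 CPM at 0 dpa (log2 change 3.37 ± 0.38 SE, adjusted p = 2.15e-05). The hemidesmosome chain ITGB4 (ENSDARG00000028507) had 497, 407 and 608 CPM at 3 dpa, against 4096, 2504 and 2831 CPM at 0 dpa, lower in each 3 dpa library (log2 change -2.64 ± 0.28 SE, adjusted p = 1.33e-05).

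G protein-coupled receptors leaned lower, with 50 falls and 24 rises among 136 (median -0.34). With any 1 library left out 35 to 46 fell and 20 to 23 rose. MC1R (ENSDARG00000020237), the melanocortin receptor of pigment cells, had 0.115, 0.121 and 0.152 CPM at 3 dpa, against 3.28, 3.81 and 1.98 CPM at 0 dpa (log2 change -4.47 ± 0.78 SE, adjusted p = 4.71e-04). ednrab (ENSDARG00000062262), an endothelin receptor, had 24.3, 33.5 and 46.6 CPM at 3 dpa, against 1.56, 0.778 and 2.91 CPM at 0 dpa (log2 change 4.36 ± 0.91 SE, adjusted p = 0.00188). AGTR1 (ENSDARG00000045443), an angiotensin receptor, had 4.02, 4.77 and 4.34 CPM at 3 dpa, against 0.164, 0.0865 and 0.233 CPM at 0 dpa (log2 change 4.74 ± 0.74 SE, adjusted p = 2.06e-04). The 2 vasoactive receptors were higher in every 3 dpa library. Of the adhesion receptors 12 of 27 fell (8 without 3 dpa replicate 3 or 0 dpa replicate 2) and 4 rose.

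**Figure D4:**
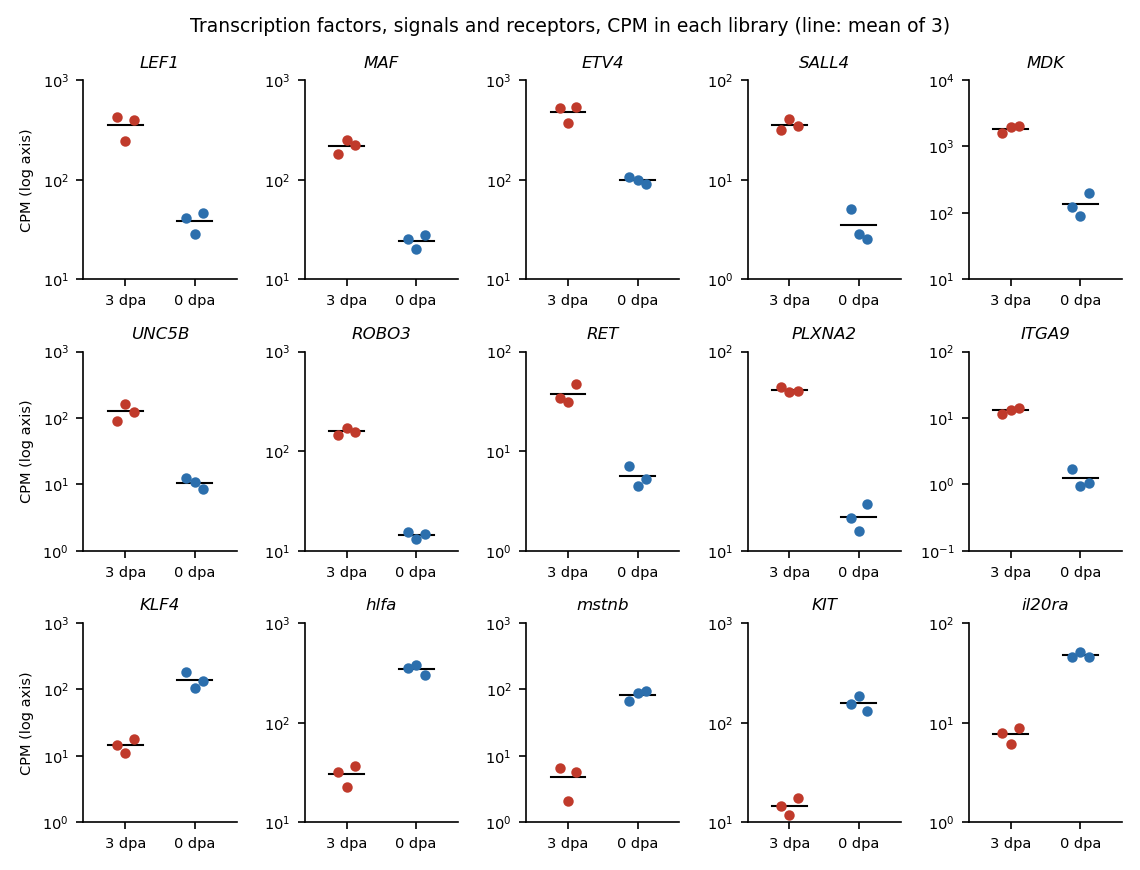
CPM on log axes for 15 genes of transcription factors, signals and receptors in each 3 dpa library (red, left) and 0 dpa library (blue, right) of replicates 1, 2 and 3, with a line at the mean of 3. The upper 2 rows show genes that rose and the bottom row genes that fell. The groups do not overlap in any of them, which was a condition of their choice.

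The solute carriers as a whole did not lean, with 68 rises and 61 falls among 240 (median 0.06), but their classes differed. Amino acid carriers rose in 17 of 38 and fell in 10 (median 0.72). SLC7A7 (ENSDARG00000055226), a carrier of basic amino acids, had 20.2, 34.1 and 29.8 CPM at 3 dpa, against 3.93, 2.94 and 3.84 CPM at 0 dpa (log2 change 2.98 ± 0.23 SE, adjusted p = 1.88e-06). SLC38A3 (ENSDARG00000027065), a glutamine carrier, had 32, 20.3 and 24.4 CPM at 3 dpa, against 2.05, 1.3 and 1.4 CPM at 0 dpa (log2 change 3.99 ± 0.49 SE, adjusted p = 3.56e-05). SLC43A1 (ENSDARG00000037748), which carries branched-chain amino acids, had 1.49, 0.848 and 1.9 CPM at 3 dpa, against 9.84, 9.34 and 12.6 CPM at 0 dpa, lower without overlap (log2 change -2.94 ± 0.36 SE, adjusted p = 3.39e-05). SLC1A4 (ENSDARG00000000551), a carrier of alanine, serine and cysteine, had 16.9, 15.6 and 12 CPM at 3 dpa, against 1.15, 0.519 and 0.116 CPM at 0 dpa, and its lowest 3 dpa library was 10.5 times its highest uncut one.

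Among sugar, lactate and nucleotide sugar carriers 14 of 44 rose (9 without 0 dpa replicate 2 or 3) and 11 fell. SLC16A1 (ENSDARG00000068572), a lactate carrier, had 23.1, 37.4 and 23.1 CPM at 3 dpa, against 5.41, 4.5 and 5.82 CPM at 0 dpa (log2 change 2.42 ± 0.31 SE, adjusted p = 4.65e-05). SLC35D1 (ENSDARG00000011973), which brings UDP-sugars into the endoplasmic reticulum for chondroitin synthesis, had 2.87, 5.45 and 3.58 CPM at 3 dpa, against 1.15, 0.605 and 0.698 CPM at 0 dpa (log2 change 2.27 ± 0.44 SE, adjusted p = 0.00105). A pair of SLC2 sugar carriers was lower. slc2a11b (ENSDARG00000063288) had 5.97, 2.3 and 4.34 CPM at 3 dpa, against 27, 22.7 and 34.8 CPM at 0 dpa (log2 change -2.79 ± 0.52 SE, adjusted p = 7.95e-04). slc2a15b (ENSDARG00000053269) had 1.72, 0.848 and 1.67 CPM at 3 dpa, against 8.36, 7.7 and 7.21 CPM at 0 dpa (log2 change -2.51 ± 0.42 SE, adjusted p = 3.40e-04). These 4 genes did not overlap between the groups.

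Metal ion carriers rose in 9 of 18 (6 without 0 dpa replicate 2 or 3) and fell in 2. SLC31A1 (ENSDARG00000013961), the copper importer, had 10.9, 13.7 and 10.9 CPM at 3 dpa, against 2.46, 2.34 and 3.84 CPM at 0 dpa (log2 change 2.06 ± 0.26 SE, adjusted p = 4.49e-05). SLC39A13 (ENSDARG00000000442), a zinc carrier of the secretory pathway that connective tissue needs, had 53.6, 51.9 and 50.8 CPM at 3 dpa, against 20.8, 18.7 and 21.4 CPM at 0 dpa (log2 change 1.36 ± 0.19 SE, adjusted p = 1.01e-04). Phosphate, sulfate, bicarbonate and chloride carriers fell in 17 of 52 (10 without 3 dpa replicate 1) and rose in 6. The phosphate carrier SLC20A1 (ENSDARG00000020114) had 2.18, 1.78 and 3.65 CPM at 3 dpa, against 16.1, 13.6 and 34 CPM at 0 dpa (log2 change -3.07 ± 0.5 SE, adjusted p = 2.97e-04). ANKH (ENSDARG00000071724), which exports ATP and pyrophosphate from cells, had 35.8, 39.7 and 39.6 CPM at 3 dpa, against 57.3, 135 and 121 CPM at 0 dpa (log2 change -1.44 ± 0.33 SE, adjusted p = 0.00286). Both were lower without overlap. ANO5 (ENSDARG00000015731) had 36.3, 39.1 and 44.7 CPM at 3 dpa, against 6.56, 6.49 and 7.21 CPM at 0 dpa (log2 change 2.57 ± 0.4 SE, adjusted p = 2.19e-04). Organic ion carriers of the SLC22 class fell in 4 of 8, and slc22a7a (ENSDARG00000056028) had 5.28, 1.57 and 1.67 CPM at 3 dpa, against 51.5, 45.8 and 51.4 CPM at 0 dpa.

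Of 39 mitochondrial carriers 11 rose (7 without 0 dpa replicate 2) and 6 fell. SLC25A21 (ENSDARG00000060564), which carries oxodicarboxylates, had 3.79, 7.15 and 5.63 CPM at 3 dpa, against 1.97, 2.34 and 2.56 CPM at 0 dpa (log2 change 1.29 ± 0.28 SE, adjusted p = 0.00211). slc25a55b (ENSDARG00000013749) had 2.07, 2.06 and 5.02 CPM at 3 dpa, against 23, 35 and 22.8 CPM at 0 dpa, lower (log2 change -3.15 ± 0.45 SE, adjusted p = 1.11e-04). ATP-driven ion pumps rose in 12 of 42 (7 without 0 dpa replicate 2) and fell in 6 (2 to 4 when any 1 library other than 3 dpa replicate 3 was left out). Of 23 genes of the vacuolar proton pump 6 rose, near the 22.8% of all tested genes, and 0 fell. Only 4 rose without 3 dpa replicate 2 or 3 or 0 dpa replicate 1 or 2. Its catalytic subunit ATP6V1A (ENSDARG00000076318) had 62.8, 57.8 and 59.6 CPM at 3 dpa, against 24.3, 18.9 and 28 CPM at 0 dpa (log2 change 1.34 ± 0.19 SE, adjusted p = 1.11e-04). ATP2B1 (ENSDARG00000012684), a plasma membrane calcium pump, had 106, 65.4 and 82.6 CPM at 3 dpa, against 45.3, 28.3 and 34 CPM at 0 dpa (log2 change 1.24 ± 0.23 SE, adjusted p = 7.42e-04). ABC proteins rose in 14 of 33 (9 without 3 dpa replicate 2) and fell in 6. All 4 tested members of the ABCE and ABCF classes, which act on ribosomes and not in membranes, rose. ABCF2 (ENSDARG00000038785) had 111, 90.7 and 89.5 CPM at 3 dpa, against 28.1, 13.6 and 30.6 CPM at 0 dpa (log2 change 2.01 ± 0.3 SE, adjusted p = 1.40e-04). ABCA12 (ENSDARG00000074749), which loads lipids for the skin barrier, had 13.5, 25.6 and 23.4 CPM at 3 dpa, against 88.9, 109 and 75.4 CPM at 0 dpa, lower in each 3 dpa library (log2 change -2.12 ± 0.3 SE, adjusted p = 1.03e-04).

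Ion channels moved in both directions. Potassium channels rose in 10 of 34 (6 when any 1 library other than 3 dpa replicate 1 was left out) and fell in 8. kcnn3 (ENSDARG00000019753), a calcium-activated channel, had 12.5, 11.7 and 13.4 CPM at 3 dpa, against 3.2, 1.64 and 2.79 CPM at 0 dpa (log2 change 2.3 ± 0.28 SE, adjusted p = 3.23e-05). KCNQ5 (ENSDARG00000069953) had 4.94, 3.47 and 3.65 CPM at 3 dpa, against 16.3, 16.3 and 19.3 CPM at 0 dpa, the opposite direction (log2 change -2.12 ± 0.3 SE, adjusted p = 1.04e-04). Potassium channels are known to set fin length in zebrafish mutants. Sodium, calcium and TRP channels rose in 10 of 46 and fell in 14. CACNA1B (ENSDARG00000021735), a neuronal calcium channel, had 46.2, 51.9 and 66.1 CPM at 3 dpa, against 4.51, 3.03 and 3.37 CPM at 0 dpa. The lowest 3 dpa library was 10.24 times the highest uncut one (log2 change 3.9 ± 0.76 SE, adjusted p = 0.00108). cacna1ha (ENSDARG00000060496), a T-type calcium channel, had 17.9, 23.5 and 16.4 CPM at 3 dpa, against 1.72, 2.25 and 2.91 CPM at 0 dpa (log2 change 3.09 ± 0.36 SE, adjusted p = 2.53e-05). scn4ab (ENSDARG00000034588), a sodium channel, had 0.767 to 2.66 CPM at 3 dpa, against 22 to 26.4 CPM at 0 dpa, lower without overlap.

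Connexins, which form gap junctions, fell in 8 of 14 and rose in 3 (2 without replicate 3 of either stage). GJA1 (ENSDARG00000041799), the connexin whose mutants have short fin segments, had 634, 296 and 482 CPM at 3 dpa, against 118, 91.7 and 142 CPM at 0 dpa, higher without overlap (log2 change 2.01 ± 0.37 SE, adjusted p = 7.58e-04). gjc4a.2 (ENSDARG00000094990) had 0.574, 0.323 and 0.228 CPM at 3 dpa, against 15.2, 12 and 10.9 CPM at 0 dpa, the opposite direction (log2 change -5.15 ± 0.46 SE, adjusted p = 4.44e-06). Of the water channels AQP8 (ENSDARG00000045141) had 37.7, 53.8 and 53.3 CPM at 3 dpa, against 16.1, 15 and 20.4 CPM at 0 dpa (log2 change 1.5 ± 0.36 SE, adjusted p = 0.00443). AQP3 (ENSDARG00000069518) had 0 to 0.152 CPM at 3 dpa, against 2.94 to 5 CPM at 0 dpa.

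Matrix and bone lists leaned higher, beside falls in each. Collagens rose in 22 of 44 and fell in 8 (median 1.03), basement membrane genes rose in 11 of 23 and fell in 5 (0.82), and metalloproteinases and their inhibitors rose in 18 of 39 and fell in 6 (0.78). col7a1 (ENSDARG00000021720), of the anchoring fibrils under the epidermis, had 369, 647 and 320.3 CPM at 3 dpa, against 62.3, 37.4 and 89.6 CPM at 0 dpa (log2 change 2.82 ± 0.36 SE, adjusted p = 5.07e-05). COL8A2 (ENSDARG00000060893) had 10.1, 3.43 and 10.1 CPM at 3 dpa, against 91.5, 55.7 and 75.6 CPM at 0 dpa, lower without overlap (log2 change -3.26 ± 0.35 SE, adjusted p = 1.54e-05). FREM1 (ENSDARG00000069473), a basement membrane protein, had 227, 161 and 225 CPM at 3 dpa, against 22.8, 15 and 20.7 CPM at 0 dpa (log2 change 3.39 ± 0.33 SE, adjusted p = 7.57e-06). LAMB1 (ENSDARG00000045524), a laminin chain, had 14.4, 10.1 and 15.6 CPM at 3 dpa, against 85.3, 83.8 and 67.4 CPM at 0 dpa (log2 change -2.57 ± 0.25 SE, adjusted p = 6.94e-06). mmp11b (ENSDARG00000016718) had 329, 464 and 444 CPM at 3 dpa, against 24.5, 18.9 and 37.6 CPM at 0 dpa (log2 change 3.94 ± 0.31 SE, adjusted p = 1.77e-06). ADAMTS8 (ENSDARG00000058252) had 0.574, 0.525 and 1.37 CPM at 3 dpa, against 15.2, 21.5 and 18.4 CPM at 0 dpa (log2 change -4.49 ± 0.42 SE, adjusted p = 5.37e-06). The rises and falls were each without overlap.

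Proteoglycans and matrix glycoproteins rose in 24 of 59 and fell in 11 (median 0.39). EFEMP2 (ENSDARG00000094324), which helps to assemble elastic fibres, had 92.9, 84.7 and 105 CPM at 3 dpa, against 10.4, 7.01 and 8.03 CPM at 0 dpa (log2 change 3.47 ± 0.22 SE, adjusted p = 5.92e-07). Its relative EFEMP1 (ENSDARG00000059121) had 0.804, 0.767 and 0.457 CPM at 3 dpa, against 9.59, 13.8 and 7.68 CPM at 0 dpa, the opposite direction (log2 change -3.92 ± 0.35 SE, adjusted p = 4.19e-06). HAPLN1 (ENSDARG00000068516), which links hyaluronan to proteoglycans, had 51.2, 21.8 and 43.4 CPM at 3 dpa, against 3.61, 2.68 and 2.21 CPM at 0 dpa (log2 change 3.75 ± 0.73 SE, adjusted p = 0.00104). In bone genes 11 of 22 rose and 3 fell (median 1.2). FKBP10 (ENSDARG00000045129), a collagen chaperone, had 192, 168 and 199 CPM at 3 dpa, against 18.7, 17.1 and 34.1 CPM at 0 dpa (log2 change 3.00 ± 0.26 SE, adjusted p = 3.41e-06). SP7 (ENSDARG00000019516), the osteoblast factor osterix, had 63.6, 41.3 and 79.7 CPM at 3 dpa, against 16.6, 9.17 and 19.1 CPM at 0 dpa (log2 change 2.04 ± 0.4 SE, adjusted p = 0.00102). ALPL (ENSDARG00000015546), a phosphatase of mineralising bone, had 17.7, 16.4 and 21.9 CPM at 3 dpa, against 32.5, 39.2 and 46.3 CPM at 0 dpa, lower (log2 change -1.07 ± 0.24 SE, adjusted p = 0.00288). PHOSPHO1 (ENSDARG00000008403), another phosphatase of mineralisation, had 212, 111 and 201 CPM at 3 dpa, against 18.1, 6.92 and 42.2 CPM at 0 dpa, higher without overlap and with the uncut libraries far apart.

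DNA replication and proteasome genes leaned higher. Of 34 DNA replication genes 26 rose and 0 fell (median 1.14), and 14 to 16 rose without 3 dpa replicate 2 or 0 dpa replicate 1 or 2. MCM5 (ENSDARG00000019507), of the replication helicase, had 55.3, 36 and 43.1 CPM at 3 dpa, against 15.2, 13.2 and 30.8 CPM at 0 dpa (log2 change 1.19 ± 0.28 SE, adjusted p = 0.00384). FEN1 (ENSDARG00000011404), which processes Okazaki fragments, had 10.8, 21.3 and 17.1 CPM at 3 dpa, against 2.62, 3.89 and 4.77 CPM at 0 dpa (log2 change 2.14 ± 0.31 SE, adjusted p = 1.26e-04). Proteasome genes rose in 32 of 45 and fell in 0 (median 1.00, 2 falls without 3 dpa replicate 1). PSMB5 (ENSDARG00000075445), a catalytic subunit of the core, had 49.9, 76.1 and 52.3 CPM at 3 dpa, against 16.6, 14.9 and 24.5 CPM at 0 dpa (log2 change 1.68 ± 0.25 SE, adjusted p = 1.50e-04). By contrast 0 of the 5 immunoproteasome genes passed in either direction (1 fell without 3 dpa replicate 1), and PSMB8 (ENSDARG00000001303) had 136, 70.1 and 65.4 CPM at 3 dpa, against 113, 159 and 125 CPM at 0 dpa, overlapping.

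Ribosomal protein genes rose in only 2 of 72 (2.78%, against 22.8% of all tested genes), and 3 rose without 3 dpa replicate 1. Their falls, 15 of 72 (20.8%), were near the 21.3% of all tested genes, and 9 or 10 fell without 3 dpa replicate 2 or 0 dpa replicate 1 or 2. The median log2 change was -0.41. Their summed share of the counts was 7.05 to 7.74% at 3 dpa and 10.5 to 11.0% at 0 dpa. RPL5 (ENSDARG00000015862) had 437, 552 and 472 CPM at 3 dpa, against 1016, 864 and 918 CPM at 0 dpa (log2 change -0.94 ± 0.23 SE, adjusted p = 0.00482). The 2 rises were of paralogs. RPL22L1 (ENSDARG00000010244) had 73.4, 90.7 and 95.6 CPM at 3 dpa, against 33.5, 53.3 and 50.5 CPM at 0 dpa (log2 change 0.92 ± 0.25 SE, adjusted p = 0.00916). RPL7L1 (ENSDARG00000042864) had 28.1, 29.9 and 26.2 CPM at 3 dpa, against 14.2, 15.2 and 16.4 CPM at 0 dpa (log2 change 0.88 ± 0.2 SE, adjusted p = 0.00332). All 3 were without overlap. Genes listed as cytosolic chaperones rose in 13 of 41 and fell in 6 (3 or 4 without 3 dpa replicate 1 or 3 or 0 dpa replicate 2). The list was matched by symbol and also took in DNAJB11, of the endoplasmic reticulum. DNAJB11 (ENSDARG00000015088) had 231, 219.6 and 225 CPM at 3 dpa, against 50.9, 28.5 and 51.4 CPM at 0 dpa (log2 change 2.37 ± 0.24 SE, adjusted p = 1.03e-05). The cytosolic HSP90AA1 (ENSDARG00000024746) had 31.6, 26 and 27.5 CPM at 3 dpa, against 71.8, 69.6 and 38.2 CPM at 0 dpa (log2 change -1.08 ± 0.27 SE, adjusted p = 0.00498). Non-muscle actin and myosin genes rose in 15 of 43 and fell in 9 (6 without 0 dpa replicate 1), and pfn1 (ENSDARG00000088091), a profilin, had 1393, 753 and 1072 CPM at 3 dpa, against 6144, 6242 and 4319.6 CPM at 0 dpa (log2 change -2.38 ± 0.31 SE, adjusted p = 5.54e-05). Tubulins and microtubule proteins rose in 10 of 22 and fell in 3. tubb5 (ENSDARG00000037997) had 375, 219 and 237 CPM at 3 dpa, against 17.1, 4.07 and 14.4 CPM at 0 dpa (log2 change 4.55 ± 0.45 SE, adjusted p = 8.32e-06). tuba8l2 (ENSDARG00000031164) had 181, 162 and 189 CPM at 3 dpa, against 541, 455 and 548 CPM at 0 dpa (log2 change -1.54 ± 0.35 SE, adjusted p = 0.0028). The first was higher and the second lower in all 3 dpa libraries.

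Genes of MHC class II, which presents antigens, were lower. All 10 tested genes of MHC class II and its chaperone CD74 fell, against 21.3% of all tested genes. Their median was -2.14, and 6 fell without 0 dpa replicate 2. Like the smaller groups named within lists, this group was drawn after its values were seen. The 5 immunoproteasome genes, which also serve antigen presentation, had a median log2 change of -0.035, and none of them passed by edgeR's quasi-likelihood test. cd74a (ENSDARG00000009087) had 1524, 844 and 1021 CPM at 3 dpa, against 4601, 5782 and 4061 CPM at 0 dpa (log2 change -2.09 ± 0.33 SE, adjusted p = 2.15e-04). cd74b (ENSDARG00000036628) had 4399.8, 2173 and 2236 CPM at 3 dpa, against 11489.8, 12102 and 12759 CPM at 0 dpa (log2 change -2.05 ± 0.33 SE, adjusted p = 2.56e-04). mhc2dab (ENSDARG00000079105) had 66.9, 70.6 and 73 CPM at 3 dpa, against 195, 192 and 194 CPM at 0 dpa (log2 change -1.46 ± 0.31 SE, adjusted p = 0.0019). The lowest uncut library was 2.66, 2.61 and 2.63 times the highest 3 dpa one in these genes, in that order. Some other macrophage markers rose. grna.1 (ENSDARG00000089362), a granulin, had 27.7, 20.03 and 37.4 CPM at 3 dpa, against 3.85, 6.14 and 6.17 CPM at 0 dpa (log2 change 2.4 ± 0.47 SE, adjusted p = 0.00112). ACP5 (ENSDARG00000019763), a phosphatase of osteoclasts, had 31.6, 28.7 and 31.2 CPM at 3 dpa, against 11, 3.63 and 8.03 CPM at 0 dpa (log2 change 2.01 ± 0.32 SE, adjusted p = 2.70e-04). In the macrophage and osteoclast list 6 of 22 rose and 6 fell, its summed level was 11611 to 15267 CPM at 3 dpa, against 20021 to 21493 CPM at 0 dpa, and without cd74b it was 9438 to 12724 CPM at 3 dpa, against 8531 to 9231 CPM at 0 dpa. apoeb made up 54.5% to 70.5% of the full sum at 3 dpa, against 12.6% to 18.5% at 0 dpa. Without apoeb alone the sums were 4103 to 6948 CPM at 3 dpa, against 16786 to 18642 CPM at 0 dpa. The direction of the sum thus depended on single genes. In this list c1qc and mfap4.9 had no counts in these 6 libraries.

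Further cell types were followed by their markers. Pigment cell markers fell in 12 of 15 and rose in 0 (median -2.45), and their sum was 33.6 to 79.9 CPM at 3 dpa, against 378 to 464 CPM at 0 dpa. MLPH (ENSDARG00000070991), which carries melanosomes, had 4.36, 2.46 and 4.79 CPM at 3 dpa, against 76.1, 74.7 and 49.4 CPM at 0 dpa (log2 change -4.14 ± 0.34 SE, adjusted p = 2.50e-06). Glia and axon markers fell in 10 of 16 and rose in 2, with sums of 149 to 182 CPM at 3 dpa, against 357 to 406 CPM at 0 dpa. The 2 rises were of different kinds of gene. STMN2 (ENSDARG00000070537), which binds tubulin, had 10.1, 13.1 and 9.13 CPM at 3 dpa, against 1.39, 0.605 and 1.75 CPM at 0 dpa (log2 change 3.13 ± 0.43 SE, adjusted p = 8.28e-05). NGFR (ENSDARG00000088708), a neurotrophin receptor, had 24.6, 21.5 and 25.6 CPM at 3 dpa, against 8.03, 6.14 and 14.1 CPM at 0 dpa (log2 change 1.35 ± 0.31 SE, adjusted p = 0.00297). mbpa (ENSDARG00000036186), of myelin, had 0.0761 to 0.565 CPM at 3 dpa, against 5.71 to 8.12 CPM at 0 dpa, and FOXD3 had no counts in these libraries. Ionocyte, goblet and sensory cell markers fell in 7 of 10 and rose in 0, but their sums of 314 to 683 CPM at 3 dpa, against 221 to 1003 CPM at 0 dpa overlapped. Without the carbonic anhydrase gene ca2, the largest member at 3 dpa, the sums were 39.3 to 46.6 CPM at 3 dpa, against 99.1 to 124.7 CPM at 0 dpa, and did not overlap. Lymphocyte markers fell in 6 of 9 (4 without 3 dpa replicate 2 or 0 dpa replicate 2) and rose in 1, the WNT effector TCF7 described above, and their sums of 226 to 308 CPM at 3 dpa, against 128 to 275 CPM at 0 dpa, overlapped. TCF7 made up 86.2% to 89.3% of that sum at 3 dpa, against 12.7% to 26.6% at 0 dpa. Without it the sums were 31.1 to 41.9 CPM at 3 dpa, against 93.5 to 239.8 CPM at 0 dpa, and did not overlap. il7r (ENSDARG00000078970) had 2.41, 1.01 and 0.685 CPM at 3 dpa, against 5.49, 10.4 and 8.14 CPM at 0 dpa (log2 change -2.63 ± 0.55 SE, adjusted p = 0.00166).

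Osteoblast markers rose in 5 of 11 and fell in 2, with sums of 4041 to 4485 CPM at 3 dpa, against 376 to 1332 CPM at 0 dpa. COL10A1 made up 82.1% to 91.6% of that sum at 3 dpa, against 21.6% to 65.2% at 0 dpa. Without it the sums were 376 to 725 CPM at 3 dpa, against 295 to 463 CPM at 0 dpa, and overlapped. Vessel endothelium markers rose in 2 of 20 (3 without 3 dpa replicate 1, and 1 when any 1 library other than this and 0 dpa replicate 1 was left out) and fell in 3. The other 15 did not pass, and the median log2 change of the list was 0.06. Their sums of 231 to 339.6 CPM at 3 dpa, against 232 to 289 CPM at 0 dpa overlapped. lyve1a (ENSDARG00000075833), a lymphatic marker, had 0.344, 0.0808 and 0.152 CPM at 3 dpa, against 9.18, 5.8 and 3.96 CPM at 0 dpa (log2 change -5.25 ± 0.71 SE, adjusted p = 7.03e-05). It had the largest fall of the list and does not stand for the other vessel markers. Neutrophil markers rose in 2 of 11 and fell in 5 (1 rose without replicate 1 of either stage, 3 dpa replicate 3 or 0 dpa replicate 2, and 1 to 3 fell when any 1 library other than 0 dpa replicate 3 was left out), with sums of 281 to 533 CPM at 3 dpa, against 211 to 275 CPM at 0 dpa. mmp13a (ENSDARG00000012395), which is also a protease of wounds, had 179, 87.8 and 263 CPM at 3 dpa, against 10.7, 10.5 and 19.4 CPM at 0 dpa (log2 change 3.71 ± 0.48 SE, adjusted p = 5.07e-05). Without mmp13a the neutrophil sums were 193 to 270.2 CPM at 3 dpa, against 201 to 255 CPM at 0 dpa, and overlapped. Without MMP9, the other member that rose, they overlapped as well. Erythrocyte markers rose in 0 of 7 and fell in 1, with sums of 16.8 to 27.9 CPM at 3 dpa, against 27.8 to 41.7 CPM at 0 dpa. Of 50 muscle identifiers 15 were tested, of which 2 rose and 3 fell (1 rose without 3 dpa replicate 2 or 0 dpa replicate 1 or 3, and 2 fell without 3 dpa replicate 3 or 0 dpa replicate 1 or 2), with sums of 139 to 291 CPM at 3 dpa, against 294 to 702 CPM at 0 dpa. Of the 50 identifiers, 5 had no counts in these 6 libraries, among them TNNI2 (ENSDARG00000029995) and TNNI2 (ENSDARG00000045592). Other TNNI2 identifiers had counts. The muscle sums overlapped when either ACTA1 identifier was left out. The part of these marker differences in the results above was not tested.

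Many genes that zebrafish keep as duplicates have symbols that differ only in a last a or b. Pairs were matched on that letter alone, so some join genes that are not duplicates, such as cyba and cybb, for different subunits of NADPH oxidase. Only symbols in lower case that a single tested identifier bears were used. Of 13543 tested genes with a symbol, 8300 had it in capitals. Duplicates under a shared symbol, such as the 2 identifiers named IMPDH1, were thus left out. Among 290 pairs with both members tested, both rose in 26 (8.97%) and both fell in 41 (14.1%). In 126 pairs (43.4%) 1 member passed and in 77 (26.6%) none. Over all tested genes 22.8% rose and 21.3% fell, and the shares among pairs of unrelated genes were not worked out. In 20 pairs (6.90%) the members moved in opposite directions, fewer than both rose or both fell. With any 1 library left out 10 to 17 did so, fewest without 0 dpa replicate 2 (10) and 3 dpa replicate 2 (12). The pairs named next are examples of these 20 and do not describe the pairs as a whole. cspg4ba (ENSDARG00000076735) had 48.2, 64.5 and 47.5 CPM at 3 dpa, against 7.05, 6.4 and 4.89 CPM at 0 dpa (log2 change 3.12 ± 0.22 SE, adjusted p = 1.28e-06). Its duplicate cspg4bb (ENSDARG00000075600) had 2.64, 2.67 and 3.73 CPM at 3 dpa, against 18.6, 29.4 and 10.6 CPM at 0 dpa (log2 change -2.7 ± 0.43 SE, adjusted p = 2.37e-04). Both are named for the proteoglycan NG2, and each was without overlap. akap12b (ENSDARG00000055678), a scaffold of protein kinase A, had 81.3, 81.4 and 60.7 CPM at 3 dpa, against 27.3, 20.7 and 22.5 CPM at 0 dpa (log2 change 1.66 ± 0.39 SE, adjusted p = 0.00364). akap12a (ENSDARG00000091792) had 0.304 to 1.03 CPM at 3 dpa, against 7.68 to 10.6 CPM at 0 dpa. cdc42ep1a (ENSDARG00000079549), an effector of the small GTPase Cdc42, had 13.9, 8.92 and 7.99 CPM at 3 dpa, against 4.1, 3.81 and 4.19 CPM at 0 dpa (log2 change 1.34 ± 0.34 SE, adjusted p = 0.00565). cdc42ep1b (ENSDARG00000077792) had 0.459, 0.202 and 0.0761 CPM at 3 dpa, against 3.03, 2.59 and 2.21 CPM at 0 dpa (log2 change -3.51 ± 0.5 SE, adjusted p = 1.01e-04). samsn1a (ENSDARG00000054543) and samsn1b (ENSDARG00000078647), named for an adaptor of blood cells, moved apart, with 14.4 to 18.1 CPM at 3 dpa, against 6.52 to 7.18 CPM at 0 dpa for samsn1a and 0.525 to 0.919 CPM at 3 dpa, against 4.51 to 9.89 CPM at 0 dpa for samsn1b. Counts of near-identical copies can share reads, so values of single members are uncertain.

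**Figure D5:**
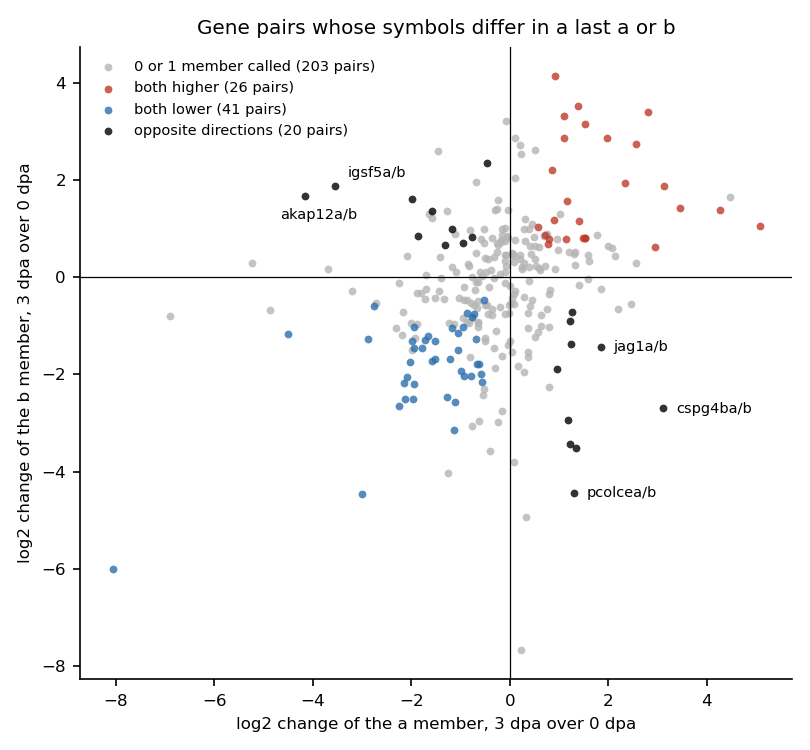
Log2 change, 3 dpa over 0 dpa, of the b member (vertical axis) against the a member (horizontal axis) in 290 gene pairs matched on the last letter of their symbols. Black points mark the 20 pairs whose members passed in opposite directions, red and blue points the 26 and 41 pairs in which both rose or both fell, and grey points the other pairs.

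The stage before was also compared. Against 2 dpa, 627 of the 16612 genes passed at 3 dpa (3.77%), 545 higher (3.28%) and 82 lower (0.494%). That count rested on single libraries and on the fit: 36 genes passed when only the 2 stages were fitted, and 173 to 1393 with any 1 library left out. The most, 1393, came without 2 dpa replicate 2, and the fewest, 173, without 3 dpa replicate 3. Leaving out 3 dpa replicate 1 gave 259 genes, leaving out 2 dpa replicate 1 gave 226 and leaving out 2 dpa replicate 3 gave 186.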

How the data were processed

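Polyadenylated RNA of 6 pools of caudal fin was sequenced on a SOLiD instrument from SENSE mRNA-Seq libraries, per the labels' protocols. The deposited values are raw counts per Ensembl gene identifier, 1 column per library, and no source used here gives the aligner, counter, genome build, annotation or strand setting. Reads of antisense, overlapping and near-identical genes can therefore not be told apart. From the authors' counts, all 12 libraries were fitted together with edgeR 4.0.16 (quasi-likelihood test, TMM normalisation, filterByExpr with a minimum of 10 counts) in R 4.3.3, p-values were adjusted over all genes by the Benjamini-Hochberg method, and the SE is the log2 change divided by the root of F.

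The filter kept 16612 of 33737 identifiers, of which 7599 were at 0 in all 12 libraries, and 21939 identifiers (65.0%) matched a symbol in a reference table. Library totals were 9359476, 22843743 and 13591692 counts at 3 dpa and 13436213, 11766019 and 8833337 counts at 0 dpa. Counts were simulated for 16612 genes, with 100 changed 2-fold and 100 changed 4-fold. The 3 dpa against 0 dpa fit recovered 21% of the 2-fold and 80% of the 4-fold changes, with 2.88% false calls. In the data 44.1% of genes passed. The Benjamini-Hochberg threshold depends on the share of changed genes, so these rates do not carry over to this comparison. Changes near 2-fold can still be missed with these libraries. A fold against a group without counts used a floor of 3 counts over the group, which covers counting error only.

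The comparison, gene lists and tests were chosen with earlier results of these data known. Named genes had a symbol, passed the test, reached 10 counts in all libraries of the stage where they were higher, and did not overlap between groups. From these came the 20 largest rises and falls, up to 4 of each direction per list, and both members of up to 6 pairs matched on a last a or b of their symbols that moved in opposite directions, and some of them are not reported here. DDOST, UGDH, CPT1A, cpt1a2b, LDHB, SLC2A1, SREBF1, srebf2, CYP26C1, sall2, HOXC13, CRY1, PER2, CLOCK, NR1D1, dbpb, cry3b, fgfr4, FGFR3, PDGFRA, IGF1R, MCM5, PSMB8 and mhc2dab were chosen after their values were seen. Alternatives were RLE normalisation, no filter, a replicate block, only the compared stages, DESeq2 1.42.0, and leaving out each library.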

Additional observations from a re-analysis of the deposited data

How the results depend on the processing

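Against 0 dpa, 5735 to 6959 genes passed with any 1 library left out, and 7156 to 8084 under the other alternatives: 7325 with RLE normalisation, 7156 without a filter, 8084 with the replicate block, 7444 with only the compared stages and 7636 with DESeq2. The share of higher genes among those that passed was 51.7% in the main fit, 48.3% with RLE normalisation, 49.7% with only the compared stages and 48.2% with DESeq2, where the median log2 change of all genes was -0.01 in place of 0.05. None of the 590 named genes changed sign under any of these in which it was tested. With only the compared stages 2 of the named identifiers were not tested. The calls lost were 16 to 39 with 1 library left out, 12 without a filter, 6 with RLE normalisation, 5 with only the compared stages and 4 each with DESeq2 and the replicate block. Members of the gene lists that passed numbered 1358, and 1115 to 1467 under the alternatives. Pairs of symbols ending in a and b whose members passed in opposite directions numbered 10 to 17 with any 1 library left out, against 20 in all.

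Against 2 dpa, 627 genes passed, 545 higher and 82 lower. With only the compared stages 36 passed (30 higher, 6 lower), and with DESeq2 1019 passed (790 higher, 229 lower). With any 1 library left out 173 to 1393 passed, 161 to 1101 of them higher and 12 to 292 lower. The cause was not tested. The column headers of the deposited counts carry a field that runs with the replicate number, which the replicate block covers. Whether replicate numbers pair the samples was not tested. Deviations from the stage means of same-numbered 3 dpa and 0 dpa libraries correlated with r of 0.12, 0.0553 and 0.0266 across genes. Libraries of unlike numbers had r of -0.105 to 0.0365. Each library correlated best with that of its own number except 0 dpa replicate 3, whose r with 3 dpa replicate 2 was 0.0365.

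Each stage had 3 pools, so the p-values describe the spread between pools of fish, and the shallowest library held 8833337 counts, which limits genes near the filter.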
